A study of Acomys cahirinus and Mus musculus with 24 samples.

Results

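The genes described here are the matrix metalloproteinases (MMPs), the ADAMTS proteases and the tissue inhibitors of metalloproteinases (TIMPs). They were taken by symbol from a list of 40 genes, made up of 18 Mmp, 18 Adamts and 4 Timp genes. Of these, 39 were among the 14514 genes counted in both species and all 39 passed the filter on low counts. Mmp24 was found in the Mus table alone, so it has no Acomys value.

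RNA was sequenced from dorsal skin of adult Mus musculus of the outbred CD-1 strain, the laboratory mouse, and of adult Acomys cahirinus, the spiny mouse, a rodent known for repairing skin with little scarring. In each species unwounded skin (day 0) was compared with full-thickness excisional wounds, 8 mm across when made, that were collected 7 or 14 days later. No genetic change or drug is recorded for either species, and no strain is given for Acomys. There were 3 libraries of Mus skin (replicates 1, 2 and 4) and 4 libraries in each of the other 5 groups, 23 in all, and a pooled Acomys library was not analysed here. The labels do not say that libraries come from separate animals, so each p-value measures the spread between libraries, which may be technical.

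MMPs are zinc-dependent endopeptidases that cut collagens and other matrix proteins, and they are made as inactive precursors that other proteases open. ADAMTS proteases belong to the same broad class of zinc enzymes; several cut the large proteoglycans versican and aggrecan, and others trim the ends of procollagens so that fibrils can form. TIMPs bind the active site of MMPs and block it, and Timp3 also blocks ADAMTS proteases. In skin wounds these proteases are known for clearing damaged matrix, freeing migrating keratinocytes and remodelling the repair tissue.

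The libraries held 5980683 to 9853153 counts each in the table shared by both species. Levels are given as CPM, that is counts scaled to a common library total, after TMM scaling of the library sizes. Keratinocyte and fibroblast markers were present in every group. Skeletal muscle markers, summed over the 5 measured, were at 10664 to 11992 CPM in Mus skin, 24.1 to 2458 CPM at day 7 and 10.03 to 5171 CPM at day 14, with 3 of 5 called lower at each day, and 3 Mus wound libraries that are poor in muscle transcripts (day 7 replicate 3, day 14 replicates 2 and 3) were left out together as an alternative. In Acomys the muscle sum was 4044 to 10330 CPM in skin, 688 to 1248 CPM at day 7, with 4 of 5 called lower, and 4407 to 9262 CPM at day 14, with none called. Among all genes 26.7% and 22.1% were called lower in Mus at days 7 and 14, and 31.4% and 20.0% in Acomys. The part of muscle in the members' values was not tested beyond that alternative. In such bulk tissue fewer cells of one type and less RNA per cell cannot be told apart.

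Most of the 39 members changed after wounding in both species, and more rose than fell. A member is said to have risen or fallen where its adjusted p was under 0.05 in edgeR's quasi-likelihood F-test, with Benjamini-Hochberg adjustment over all 14514 genes. Changes are log2 fold changes given with their standard error, so that a change of 1 is a 2-fold rise. In Mus at day 7, 22 members rose, 9 fell and 8 did not pass, against 27.0% of all genes higher and 26.7% lower (53.7% called). At day 14 in Mus, 26 rose, 6 fell and 7 did not pass, against 21.6% higher and 22.1% lower among all genes (43.8% called). Acomys at day 7 had 25 members higher, 8 lower and 6 not past the test, against 30.4% and 31.4% of all genes (61.8% called). Acomys at day 14 had 29 members higher, 5 lower and 5 not past the test, against 18.9% and 20.0% of all genes (38.9% called). The share of members that rose was thus larger than the share of all genes that rose in each of the 4 comparisons, and the median change of the members was 1.33 and 1.51 in Mus and 1.71 and 1.27 in Acomys at days 7 and 14, where the median over all genes lay between -0.035 and 0.001. The members called lower were a smaller share than all genes called lower in each of the 4 comparisons. In all 4 wound comparisons 16 members rose: Mmp9, Mmp11, Mmp12, Mmp13, Mmp19, Timp1, Adamts3, Adamts4, Adamts6, Adamts7, Adamts9, Adamts12, Adamts14, Adamts15, Adamts16 and Adamts19. Mmp28 and Timp4 fell in all 4. At day 7 Adamts18 rose in Mus and fell in Acomys, while Adamts2 and Timp2 fell in Mus and rose in Acomys. At day 14 Adamts2, Adamts20 and Mmp17 fell in Mus and rose in Acomys. Some of these calls were lost when 1 library was left out, among them those of Adamts19 in Mus at day 7 and of Adamts12 and Timp4 in Acomys at day 14, as given with each gene. The 2 comparisons of a species share its skin libraries. Without the 3 muscle-poor Mus libraries, 30 members were called in Mus at day 7 (21 higher, 9 lower) and 27 at day 14 (22 higher, 5 lower).

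**Figure D1:**
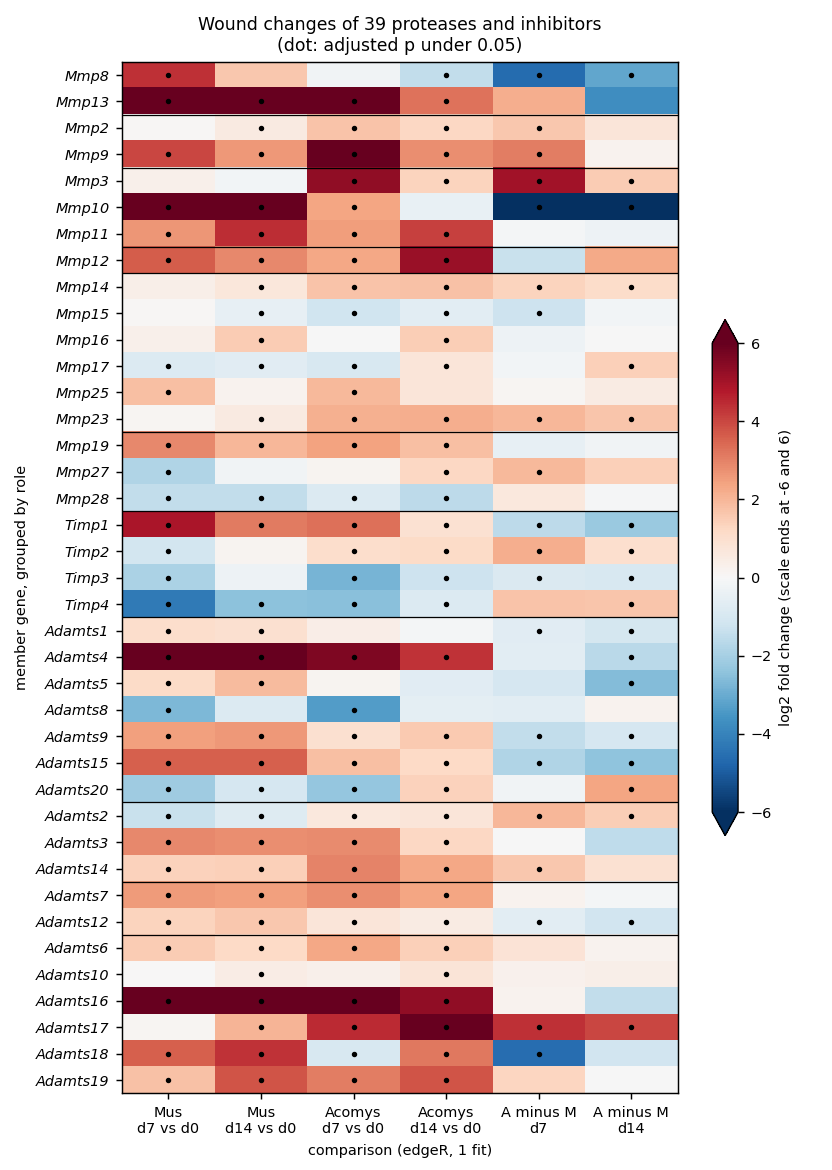
Log2 fold change of each of the 39 members (rows, grouped by role). Columns are the wound-against-skin comparisons of each species and the Acomys minus Mus differences of change, at day 7 and day 14. The colour scale ends at 6 in either direction, and a dot marks an adjusted p under 0.05. Wound columns are mostly in the direction of a rise, with 22, 26, 25 and 29 of 39 members called higher; the Mus colours of Mmp10 rest on a prior count because Mus skin had no count.

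A separate test asked whether the change differed between the species, by taking the change in Acomys minus the change in Mus. A factor that is fixed for a gene in a species, such as transcript length or the completeness of the assembly, cancels in this difference. At day 7 the difference was positive for 10 members and negative for 10, and 19 did not pass, against 17.1% and 18.7% of all genes (35.8% called). At day 14 it was positive for 9 and negative for 10, and 20 did not pass, against 13.1% and 12.0% of all genes (25.1% called). The difference was positive at both days for Mmp3, Mmp14, Mmp23, Timp2, Adamts2 and Adamts17. It was negative at both days for Mmp8, Timp1, Timp3, Adamts1, Adamts9, Adamts12 and Adamts15, and the Mmp10 difference passed at both days too. The calls of Mmp8 at day 14 and of Adamts1 and Adamts12 at day 7 were lost without some single libraries, as given with each gene.

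The 6 members Mmp13, Mmp12, Mmp3, Mmp10, Mmp8 and Mmp27 lie in that order within a single stretch of mouse chromosome 9, all on the plus strand, between 7272514 and 7581885 (GRCm38, GENCODE vM21). GRCm38 is a later build than the mm9 named in the submitters' processing notes, and it was used for gene positions and reference sequence alone. Each of the 6 encodes the motif of MMP active sites in which 3 histidines bind the catalytic zinc, H E x x H x x G x x H with x for any residue. The motif was found in 30 of the 40 members, in all 18 Mmp genes, in 12 Adamts genes and in none of the Timp genes, which encode inhibitors. In 5 further Adamts genes (Adamts1, Adamts4, Adamts9, Adamts15 and Adamts20) it was found with N in place of G, with the 3 histidines kept. Adamts8 matched neither spelling, which was not looked into further. The coding stretch of 33 bases behind the motif with G is shown for these 6 genes. They lie in the same part of chromosome 9 and yet differed widely in how they moved. Capitals mark the 3 histidine codons, and each sequence is read 5′ to 3′ on the coding strand of the reference transcript.
Mmp13: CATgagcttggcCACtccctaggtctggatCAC
Mmp12: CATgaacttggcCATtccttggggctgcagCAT
Mmp3: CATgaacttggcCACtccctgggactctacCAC
Mmp10: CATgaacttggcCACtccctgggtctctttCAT
Mmp8: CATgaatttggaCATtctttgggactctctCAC
Mmp27: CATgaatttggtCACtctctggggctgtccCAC

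Over the whole coding sequence Mmp3 and Mmp10 were the most alike pair of the 6, with 80.5% of aligned bases equal, and the other 14 pairs were 64.4% to 68.2% equal. Of the stretches of 31 bases in Mmp3, 18.3% were found in another gene, most of these in Mmp10, and Mmp13, Mmp12, Mmp8 and Mmp27 shared none with any other gene. Reads of Mmp3 and Mmp10 could in part be split between them by the counting. Mouse transcripts alone were compared here, so shared stretches in Acomys were not checked. In Mus skin Mmp10 had no count in any of the 3 libraries while Mmp3 had 2305 to 2533 counts in each.

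The 2 collagenases, which cut fibrillar collagen, behaved differently from each other. Mmp13 (collagenase-3) was close to 0 in the skin of both species and rose steeply in both at day 7. At day 14 it was still high in Mus, whereas in Acomys it had fallen to a small part of its day 7 level. Mmp13 was at 0.599, 0.752 and 1.38 CPM in Mus skin, at 111, 119, 61.1 and 87.7 CPM in the day 7 wounds and at 20.1, 73.9, 248 and 137 CPM in the day 14 wounds. Mmp13 was at 1.05, 0.252, 0 and 0.337 CPM in Acomys skin, at 268, 184, 209 and 179 CPM in the day 7 wounds and at 5.06, 3.18, 4.64 and 4.61 CPM in the day 14 wounds. All wound libraries were above all skin libraries in both species. The Mus day 14 wounds spread widely, with replicate 1 lowest and replicate 3 highest, and every one of them was above every Acomys day 14 wound. Mus Mmp13 rose by 6.65 ± 0.78 at day 7 (adjusted p = 7.29e-07) and by 7.00 ± 0.78 at day 14 (adjusted p = 7.68e-07). Acomys Mmp13 rose by 8.84 ± 0.75 at day 7 (adjusted p = 6.14e-09) and by 3.27 ± 0.90 at day 14 (adjusted p = 0.00715). For Mmp13, the Acomys change minus the Mus change was 2.19 ± 1.42 (adjusted p = 0.247, not past the threshold) at day 7 and -3.73 ± 1.63 (adjusted p = 0.103, not past the threshold) at day 14. The Mmp13 difference between the species did not pass at either day. From day 7 to day 14 Acomys Mmp13 fell by 5.57 ± 0.56 (adjusted p = 2.61e-07), and the Mus change over the same interval was 0.34 ± 0.45 (adjusted p = 0.636, not past the threshold). The Acomys minus Mus difference of that interval was -5.92 ± 0.70 (adjusted p = 1.19e-05). Mmp13 thus came down in Acomys, while the Mus wounds of the 2 days overlapped. The Mmp13 value for the difference of changes at day 7 came under the threshold in a fit of the compared groups alone (adjusted p = 0.0359) and by the DESeq2 Wald test (adjusted p = 0.0448). The Mmp13 value for the difference of changes at day 14 came under the threshold on omitting replicate 1 of Mus day 14 (adjusted p = 0.0113) and by the DESeq2 Wald test (adjusted p = 0.000877).

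Mmp8, named collagenase-2 or neutrophil collagenase after the cells that store it, was low in Mus skin and high in Acomys skin. Mmp8 was at 0.749, 0.251 and 0.500 CPM in Mus skin, at 19.1, 4.32, 9.60 and 8.61 CPM in the day 7 wounds and at 0.666, 1.46, 0.649 and 3.05 CPM in the day 14 wounds. Mmp8 was at 49.9, 94.9, 42.3 and 62.6 CPM in Acomys skin, at 42.1, 58.5, 67.4 and 45.2 CPM in the day 7 wounds and at 20.1, 20.1, 19.3 and 29.0 CPM in the day 14 wounds. In Mus all day 7 wounds were above all skin libraries and all day 14 wounds. In Acomys the skin and day 7 libraries overlapped, and all day 14 wounds were below all skin libraries. At each day all Acomys libraries were above all Mus libraries. Mus Mmp8 rose by 4.39 ± 0.64 at day 7 (adjusted p = 7.34e-06), and its day 14 change was 1.62 ± 0.85 (adjusted p = 0.131, not past the threshold). Acomys Mmp8 fell by 1.497 ± 0.32 at day 14 (adjusted p = 0.000866), and its day 7 change was -0.23 ± 0.31 (adjusted p = 0.545, not past the threshold). For Mmp8, the Acomys change minus the Mus change was -4.62 ± 0.73 (adjusted p = 5.49e-05) at day 7 and -3.12 ± 0.89 (adjusted p = 0.0141) at day 14. The Mmp8 change was more upward in Mus at both days. All 5 neutrophil markers (S100a8, S100a9, Csf3r, Cxcr2 and Clec4d) had counts, and their sum was 33.2 to 40.6 CPM in Mus skin, 1682 to 4041 CPM at day 7 and 116 to 339.7 CPM at day 14. The same sum was 13.4 to 19.0 CPM in Acomys skin, 1285 to 2020.1 CPM at day 7 and 18.1 to 56.2 CPM at day 14. In Mus the markers and Mmp8 were both highest at day 7, while in Acomys the markers rose and Mmp8 did not pass at that day; the part of neutrophils in the Mmp8 values was not tested. The Mmp8 value in Mus at day 14 came under the threshold by the DESeq2 Wald test (adjusted p = 0.0239). The Mmp8 call for the difference of changes at day 14 did not hold on omitting replicate 4 of Mus day 14 (adjusted p = 0.0965).

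**Figure D2:**
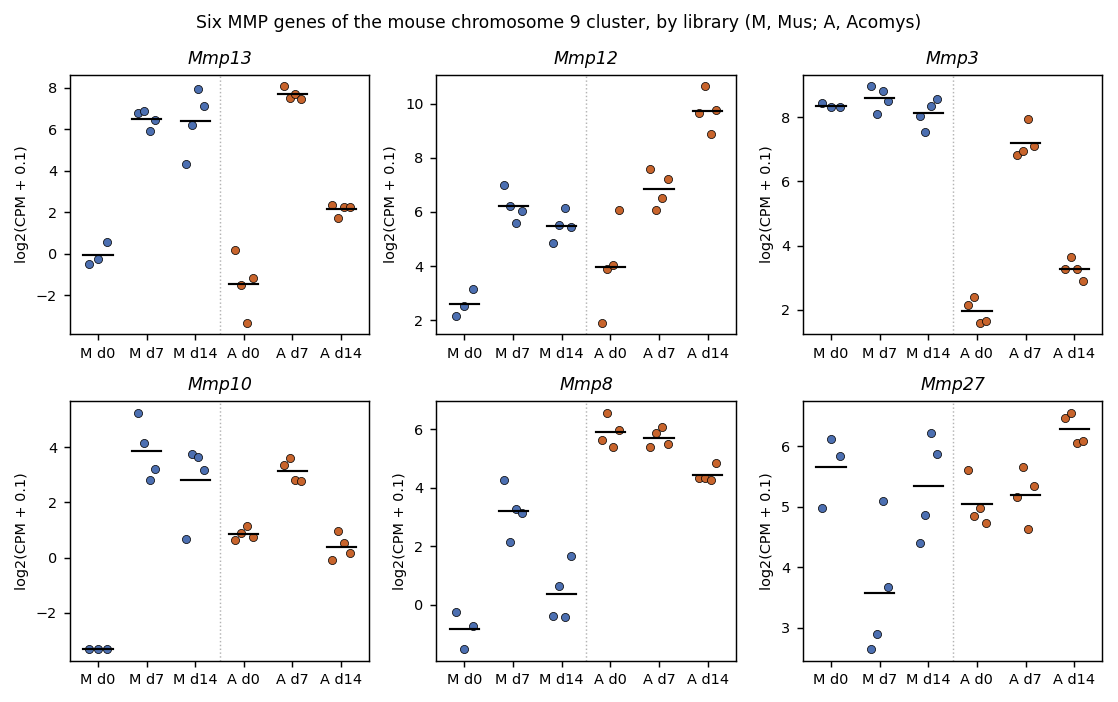
Level of the 6 members of this chromosome 9 stretch in each library, as log2(CPM + 0.1), for skin, day 7 and day 14 of Mus and Acomys; points are libraries and bars are group means. Mmp13 and Mmp3 of Acomys peak at day 7, Mmp12 of Acomys is highest at day 14 with 468 to 1596 CPM, and Mmp8 is at 19.3 CPM or more in every Acomys library.

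The stromelysins Mmp3 and Mmp10 cut a broad range of matrix proteins and open the precursors of other MMPs. Mmp3 was abundant in Mus at every day. In Acomys it was low in skin, high at day 7 and low again at day 14. Mmp3 was at 345, 315 and 317 CPM in Mus skin, at 498, 272, 452 and 362 CPM in the day 7 wounds and at 261, 187, 325 and 383 CPM in the day 14 wounds. Mmp3 was at 4.29, 5.18, 2.92 and 3.03 CPM in Acomys skin, at 113, 124, 247 and 138 CPM in the day 7 wounds and at 9.56, 12.5, 9.55 and 7.38 CPM in the day 14 wounds. The 3 Mus groups overlapped one another. All Acomys day 7 wounds were above all other Acomys libraries, and at each day all Acomys libraries were below all Mus libraries. Mus Mmp3 changes were 0.28 ± 0.26 (adjusted p = 0.387, not past the threshold) at day 7 and -0.17 ± 0.26 (adjusted p = 0.631, not past the threshold) at day 14. Acomys Mmp3 rose by 5.32 ± 0.31 at day 7 (adjusted p = 1.75e-11) and by 1.33 ± 0.31 at day 14 (adjusted p = 0.00153). For Mmp3, the Acomys change minus the Mus change was 5.04 ± 0.40 (adjusted p = 1.24e-08) at day 7 and 1.501 ± 0.40 (adjusted p = 0.00935) at day 14. The Mmp3 change was more upward in Acomys at both days. From day 7 to day 14 Acomys Mmp3 fell by 4.00 ± 0.28 (adjusted p = 1.63e-09). The gap between the species was -6.39 ± 0.33 (adjusted p = 1.05e-12) in skin, -1.35 ± 0.25 (adjusted p = 6.08e-05) at day 7 and -4.89 ± 0.29 (adjusted p = 1.04e-11) at day 14.

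Mmp10 had no count in Mus skin, whose 3 libraries allow at most 0.132 CPM at 3 counts over the group (counting error only). Mmp10 was at 0, 0 and 0 CPM in Mus skin, at 38.3, 17.8, 7.03 and 9.14 CPM in the day 7 wounds and at 1.498, 13.3, 12.5 and 8.88 CPM in the day 14 wounds. Mmp10 was at 1.46, 1.77, 2.09 and 1.57 CPM in Acomys skin, at 10.3, 12.0, 7.02 and 6.82 CPM in the day 7 wounds and at 0.844, 1.86, 1.34 and 1.01 CPM in the day 14 wounds. In Mus all wounds were above all skin libraries. In Acomys all day 7 wounds were above all other libraries, and skin and day 14 wounds overlapped. Against the floor of 3 counts over the group, Mus Mmp10 was at least 136-fold higher at day 7 and at least 68.3-fold higher at day 14, with adjusted p values of 3.44e-06 and 4.56e-05. Acomys Mmp10 rose by 2.39 ± 0.57 at day 7 (adjusted p = 0.00142), and its day 14 change was -0.45 ± 0.68 (adjusted p = 0.646, not past the threshold). The change was lower in Acomys than in Mus, with adjusted p = 0.00361 for the difference at day 7 and 0.000679 at day 14; no fold is given for it because Mus skin had no count.

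Mmp11 (stromelysin-3), unlike most MMPs, leaves the cell in active form and is made by stromal cells. Mmp11 ranged over 4.501 to 6.02 CPM in Mus skin, 21.3 to 51.0 CPM at day 7 and 57.7 to 201 CPM at day 14. Mmp11 ranged over 6.96 to 24.6 CPM in Acomys skin, 32.1 to 171 CPM at day 7 and 190.2 to 341 CPM at day 14. In both species all day 7 wounds were above all skin libraries, and all day 14 wounds were above all day 7 wounds. Mus Mmp11 rose by 2.67 ± 0.63 at day 7 (adjusted p = 0.00141) and by 4.42 ± 0.65 at day 14 (adjusted p = 1.9e-05). Acomys Mmp11 rose by 2.53 ± 0.51 at day 7 (adjusted p = 0.000252) and by 4.12 ± 0.53 at day 14 (adjusted p = 5.94e-06). The species differences of these changes were -0.14 ± 0.78 and -0.30 ± 0.77 and did not pass (adjusted p = 0.925 and 0.82).

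Mmp12, the macrophage elastase, cuts elastin and is made mainly by macrophages. In Acomys its level at day 14 was several times that at day 7, while in Mus the wound days overlapped. Mmp12 was at 4.34, 5.64 and 8.75 CPM in Mus skin, at 129, 74.9, 48.0 and 66.1 CPM in the day 7 wounds and at 29.0, 45.6, 71.1 and 43.2 CPM in the day 14 wounds. Mmp12 was at 3.66, 14.8, 16.4 and 66.9 CPM in Acomys skin, at 193, 68.1, 91.5 and 149 CPM in the day 7 wounds and at 812, 1596, 468 and 875 CPM in the day 14 wounds. All wound libraries were above all skin libraries in both species. Acomys skin replicate 4 was far above the other 3 skin libraries, and all Acomys day 14 wounds were above all other libraries of either species. Mus Mmp12 rose by 3.65 ± 0.77 at day 7 (adjusted p = 0.000537) and by 2.90 ± 0.76 at day 14 (adjusted p = 0.00417). Acomys Mmp12 rose by 2.30 ± 0.61 at day 7 (adjusted p = 0.00319) and by 5.20 ± 0.69 at day 14 (adjusted p = 8.21e-06). For Mmp12, the Acomys change minus the Mus change was -1.36 ± 0.93 (adjusted p = 0.276, not past the threshold) at day 7 and 2.29 ± 0.94 (adjusted p = 0.0824, not past the threshold) at day 14. The Mmp12 difference between the species did not pass at either day. From day 7 to day 14 Acomys Mmp12 rose by 2.90 ± 0.61 (adjusted p = 0.000774), and the Mus change was -0.75 ± 0.59 (adjusted p = 0.406, not past the threshold). The Acomys minus Mus difference of that interval was 3.65 ± 0.84 (adjusted p = 0.00417). Of 7 macrophage markers 6 were measured and none was at 0; their sum was 1023 to 1179.6 CPM in Mus skin, 1894 to 2788 CPM at day 7 and 1915 to 2502 CPM at day 14, and 229.9 to 506 CPM in Acomys skin, 1590.0 to 2624 CPM at day 7 and 702 to 1005 CPM at day 14. From day 7 to day 14 in Acomys the marker sum was thus lower as Mmp12 rose, with 0 of 6 markers called higher and 3 called lower. Among all genes 22.6% were higher and 21.8% lower over that interval (44.4% called), so the number of markers called is near the background. The part of these markers in the Mmp12 values was not tested. That Mmp12 value in Acomys at day 7 was 3.45 without Acomys day 0 replicate 4. The Mmp12 value for the difference of changes at day 14 came under the threshold on omitting replicate 4 of Acomys day 0 (adjusted p = 0.00375) and by the DESeq2 Wald test (adjusted p = 0.0485).

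The gelatinases cut denatured collagen and basement membrane collagen. Mmp9 (gelatinase B, stored by neutrophils and made by keratinocytes and macrophages) rose in both species, and more at day 7 in Acomys. Mmp9 was at 4.34, 7.27 and 10.3 CPM in Mus skin, at 174, 101, 73.3 and 129 CPM in the day 7 wounds and at 16.3, 44.0, 82.6 and 37.4 CPM in the day 14 wounds. Mmp9 was at 4.39, 2.65, 1.81 and 3.48 CPM in Acomys skin, at 468, 307, 453 and 482 CPM in the day 7 wounds and at 25.7, 36.0, 9.38 and 17.9 CPM in the day 14 wounds. All wounds were above all skin libraries in both species. At day 7 all Acomys wounds were above all Mus wounds, although the skin libraries of the species overlapped. Mus Mmp9 rose by 4.02 ± 0.53 at day 7 (adjusted p = 3.33e-06) and by 2.61 ± 0.52 at day 14 (adjusted p = 0.000405). Acomys Mmp9 rose by 7.08 ± 0.54 at day 7 (adjusted p = 1.47e-09) and by 2.81 ± 0.50 at day 14 (adjusted p = 0.000183). For Mmp9, the Acomys change minus the Mus change was 3.06 ± 0.70 (adjusted p = 0.00214) at day 7 and 0.20 ± 0.70 (adjusted p = 0.879, not past the threshold) at day 14. The Mmp9 change was more upward in Acomys at day 7, and at day 14 the difference did not pass. From day 7 to day 14 Acomys Mmp9 fell by 4.27 ± 0.45 (adjusted p = 4.39e-07), and the Acomys minus Mus difference of that interval was -2.87 ± 0.58 (adjusted p = 0.00148). The neutrophil markers given with Mmp8 were higher in Mus than in Acomys at day 7 for 4 of 5, where 34.9% of all genes were. Their sums ranged over 1682 to 4041 CPM in Mus and 1285 to 2020 CPM in Acomys. A fixed factor of the gene does not cancel in such levels. In the day 7 difference of changes 1 of the 5 markers was positive and 1 negative, against 17.1% and 18.7% of all genes. The part of neutrophils in the Mmp9 values was not tested.

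Mmp2 (gelatinase A), made mainly by fibroblasts and opened at the cell surface by Mmp14, had the most counts of the Mmp genes in every group. Mmp2 was at 762, 1029 and 824 CPM in Mus skin, at 859, 921, 906 and 941 CPM in the day 7 wounds and at 1144, 1305, 1233 and 1346 CPM in the day 14 wounds. Mmp2 was at 642, 283, 476 and 327 CPM in Acomys skin, at 1703, 1441, 1236 and 1221 CPM in the day 7 wounds and at 1206, 980.1, 894 and 991 CPM in the day 14 wounds. The Mus skin and day 7 libraries overlapped. All Acomys wounds were above all Acomys skin libraries, and all Acomys day 7 wounds were above all Mus day 7 wounds. Mus Mmp2 rose by 0.53 ± 0.20 at day 14 (adjusted p = 0.037), and its day 7 change was 0.06 ± 0.20 (adjusted p = 0.837, not past the threshold). Acomys Mmp2 rose by 1.70 ± 0.19 at day 7 (adjusted p = 8.92e-08) and by 1.24 ± 0.19 at day 14 (adjusted p = 1.8e-05). For Mmp2, the Acomys change minus the Mus change was 1.64 ± 0.27 (adjusted p = 7.09e-05) at day 7 and 0.71 ± 0.27 (adjusted p = 0.0585, not past the threshold) at day 14. The Mmp2 change was more upward in Acomys at day 7, and at day 14 the difference did not pass. The 6 fibroblast markers were all present, with a sum of 104636 to 115247 CPM in Mus skin, 76721 to 84770.0 CPM at day 7 and 112987 to 136099 CPM at day 14. The Acomys sums were 13047 to 38037 CPM in skin, 28533 to 37354 CPM at day 7 and 40350.4 to 63898 CPM at day 14, with skin replicate 1 at the top of the skin range. At day 7, 4 of 6 fibroblast markers were called higher and 0 lower in Acomys, against 1 higher and 3 lower in Mus. Among all genes 30.4% rose and 31.4% fell in Acomys at that day, and 27.0% and 26.7% in Mus. At day 14, 6 of 6 were called higher in Acomys and 3 of 6 in Mus, with 0 lower in either. Among all genes 18.9% rose and 20.0% fell in Acomys at day 14, and 21.6% and 22.1% in Mus. The part of these markers in the values of Mmp2, Mmp14, Timp2 and Adamts2 was not tested. The Mmp2 call in Mus at day 14 did not hold on omitting replicates 1 and 4 of Mus day 0 and replicates 2, 3 and 4 of Mus day 14 (each omitted singly, adjusted p = 0.0517 to 0.147) and without the 3 muscle-poor Mus libraries together (adjusted p = 0.118). The Mmp2 value for the difference of changes at day 14 came under the threshold on omitting replicate 1 of Acomys day 0 (adjusted p = 0.00344) and by the DESeq2 Wald test (adjusted p = 0.0446).

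Mmp14 (MT1-MMP), the membrane-anchored activator of Mmp2 and a collagenase in its own right, rose in Acomys at both days. Mmp14 was at 446, 524 and 373 CPM in Mus skin, at 613, 734, 453 and 502 CPM in the day 7 wounds and at 624, 844, 699 and 692 CPM in the day 14 wounds. Mmp14 was at 227, 109, 162 and 126 CPM in Acomys skin, at 604, 476, 501 and 459 CPM in the day 7 wounds and at 596, 505, 442 and 581 CPM in the day 14 wounds. Acomys skin was below Mus skin in every library, and the day 7 wounds of the 2 species overlapped. In Mus the skin and day 7 libraries overlapped. Mus Mmp14 rose by 0.68 ± 0.21 at day 14 (adjusted p = 0.0111), and its day 7 change was 0.36 ± 0.21 (adjusted p = 0.144, not past the threshold). Acomys Mmp14 rose by 1.71 ± 0.19 at day 7 (adjusted p = 1.27e-07) and by 1.76 ± 0.19 at day 14 (adjusted p = 3.77e-07). For Mmp14, the Acomys change minus the Mus change was 1.34 ± 0.28 (adjusted p = 0.000715) at day 7 and 1.09 ± 0.28 (adjusted p = 0.00635) at day 14. The Mmp14 change was more upward in Acomys at both days. The Mmp14 call in Mus at day 14 did not hold on omitting replicate 4 of Mus day 0 (adjusted p = 0.0671) and without the 3 muscle-poor Mus libraries together (adjusted p = 0.0723).

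Mmp23, a member with a type II membrane anchor, followed a like course at lower levels. Mmp23 was at 70.4, 58.8 and 57.9 CPM in Mus skin, at 76.4, 74.1, 66.6 and 56.9 CPM in the day 7 wounds and at 92.5, 89.2, 89.4 and 87.6 CPM in the day 14 wounds. Mmp23 was at 12.1, 5.68, 9.89 and 4.95 CPM in Acomys skin, at 36.5, 38.2, 36.3 and 34.3 CPM in the day 7 wounds and at 40.5, 37.6, 37.2 and 31.8 CPM in the day 14 wounds. All Acomys wounds were above all Acomys skin libraries, and at each day all Acomys libraries were below all Mus libraries. Mus Mmp23 rose by 0.53 ± 0.18 at day 14 (adjusted p = 0.0202), and its day 7 change was 0.14 ± 0.18 (adjusted p = 0.538, not past the threshold). Acomys Mmp23 rose by 2.15 ± 0.18 at day 7 (adjusted p = 1.73e-09) and by 2.17 ± 0.18 at day 14 (adjusted p = 1.14e-08). For Mmp23, the Acomys change minus the Mus change was 2.01 ± 0.25 (adjusted p = 2.82e-06) at day 7 and 1.64 ± 0.25 (adjusted p = 7.05e-05) at day 14. The Mmp23 change was more upward in Acomys at both days. The Mmp23 call in Mus at day 14 did not hold on omitting replicates 2 and 4 of Mus day 0 (each omitted singly, adjusted p = 0.077 to 0.0797) and without the 3 muscle-poor Mus libraries together (adjusted p = 0.0628).

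Mmp15 (MT2-MMP), another membrane-type MMP, moved the other way in Acomys. Mmp15 was at 17.4, 20.9 and 13.4 CPM in Mus skin, at 19.8, 19.7, 15.7 and 16.5 CPM in the day 7 wounds and at 13.0, 14.41, 12.8 and 9.68 CPM in the day 14 wounds. Mmp15 was at 36.3, 32.4, 33.6 and 31.8 CPM in Acomys skin, at 15.1, 13.8, 14.0 and 16.1 CPM in the day 7 wounds and at 19.7, 19.5, 21.8 and 24.4 CPM in the day 14 wounds. All Acomys wounds were below all Acomys skin libraries. In Mus the wound libraries of both days overlapped skin. Mus Mmp15 fell by 0.47 ± 0.15 at day 14 (adjusted p = 0.0131), and its day 7 change was 0.06 ± 0.15 (adjusted p = 0.775, not past the threshold). Acomys Mmp15 fell by 1.18 ± 0.13 at day 7 (adjusted p = 8.36e-08) and by 0.65 ± 0.13 at day 14 (adjusted p = 0.000335). For Mmp15, the Acomys change minus the Mus change was -1.24 ± 0.20 (adjusted p = 4.69e-05) at day 7 and -0.18 ± 0.20 (adjusted p = 0.548, not past the threshold) at day 14. The Mmp15 change was more upward in Mus at day 7, and at day 14 the difference did not pass. The Mmp15 call in Mus at day 14 did not hold on omitting replicate 2 of Mus day 0 and replicate 4 of Mus day 14 (each omitted singly, adjusted p = 0.0564 to 0.129) and in a fit of the compared groups alone (adjusted p = 0.0744). That Mmp15 value in Mus at day 14 was -0.31 without Mus day 0 replicate 2.

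Mmp17 (MT4-MMP), held to the membrane by a glycolipid anchor, was low in all groups. Mmp17 was at 6.89, 4.14 and 5.63 CPM in Mus skin, at 2.88, 4.16, 2.84 and 2.81 CPM in the day 7 wounds and at 2.83, 3.47, 4.06 and 3.31 CPM in the day 14 wounds. Mmp17 was at 4.91, 3.28, 5.43 and 3.15 CPM in Acomys skin, at 2.96, 1.17, 1.87 and 2.63 CPM in the day 7 wounds and at 6.56, 5.81, 6.43 and 9.13 CPM in the day 14 wounds. In Acomys all day 7 wounds were below all skin libraries and all day 14 wounds above them. In Mus all day 14 wounds were below all skin libraries. Mus Mmp17 fell by 0.80 ± 0.28 at day 7 (adjusted p = 0.0192) and by 0.69 ± 0.28 at day 14 (adjusted p = 0.0486). Acomys Mmp17 fell by 0.95 ± 0.26 at day 7 (adjusted p = 0.00356) and rose by 0.74 ± 0.24 at day 14 (adjusted p = 0.0183). For Mmp17, the Acomys change minus the Mus change was -0.15 ± 0.38 (adjusted p = 0.81, not past the threshold) at day 7 and 1.43 ± 0.37 (adjusted p = 0.00679) at day 14. The Mmp17 change was more upward in Acomys at day 14, and at day 7 the difference did not pass. The Mmp17 call in Mus at day 7 did not hold on omitting replicate 1 of Mus day 0 (adjusted p = 0.107). The Mmp17 call in Mus at day 14 did not hold on omitting replicates 1 and 4 of Mus day 0 and replicates 1, 2 and 4 of Mus day 14 (each omitted singly, adjusted p = 0.0763 to 0.211), with RLE size factors (adjusted p = 0.0512), without the 3 muscle-poor Mus libraries together (adjusted p = 0.0764) and by the DESeq2 Wald test (adjusted p = 0.0521). The Mmp17 call in Acomys at day 14 did not hold on omitting replicates 2 and 4 of Acomys day 0 and replicate 4 of Acomys day 14 (each omitted singly, adjusted p = 0.0588 to 0.074).

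The 3 remaining membrane-anchored members are Mmp25, Mmp16 and Mmp24. Mmp25 (MT6-MMP), known from neutrophils, rose at day 7 in both species. Mmp25 ranged over 1.497 to 2.25 CPM in Mus skin, 2.88 to 10.02 CPM at day 7 and 0.530 to 4.16 CPM at day 14. Mmp25 ranged over 0.418 to 2.30 CPM in Acomys skin, 4.79 to 5.78 CPM at day 7 and 1.34 to 3.51 CPM at day 14. All day 7 wounds were above all skin libraries in both species, and the day 14 wounds overlapped skin. Mus Mmp25 rose by 1.80 ± 0.52 at day 7 (adjusted p = 0.00609), and its day 14 change was 0.23 ± 0.57 (adjusted p = 0.782, not past the threshold). Acomys Mmp25 rose by 1.92 ± 0.47 at day 7 (adjusted p = 0.00134), and its day 14 change was 0.72 ± 0.50 (adjusted p = 0.274, not past the threshold). Mmp16 (MT3-MMP) was higher at day 14 than in skin in both species, with no overlap. Mus Mmp16 rose by 1.51 ± 0.26 at day 14 (adjusted p = 6.66e-05), and its day 7 change was 0.30 ± 0.27 (adjusted p = 0.362, not past the threshold). Acomys Mmp16 rose by 1.48 ± 0.23 at day 14 (adjusted p = 2.74e-05), and its day 7 change was -0.004 ± 0.24 (adjusted p = 0.992, not past the threshold). Mmp24 (MT5-MMP), read from the Mus table, stayed between 0.317 and 1.55 CPM in all 11 Mus libraries, and its changes of -0.74 ± 0.43 at day 7 and 0.22 ± 0.41 at day 14 did not pass (adjusted p = 0.166 and 0.679; of all 15337 genes there, 57.7% and 46.0% were called). The differences of change between the species did not pass for Mmp16 or Mmp25 at either day (adjusted p = 0.549 and 0.976 for Mmp16, 0.925 and 0.685 for Mmp25). The Mmp16 value in Mus at day 7 came under the threshold on omitting replicate 4 of Mus day 0 (adjusted p = 0.044).

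The other secreted MMPs moved in 3 ways. Mmp19, which cuts basement membrane proteins, rose in both species. Mmp19 ranged over 23.8 to 31.5 CPM in Mus skin, 144 to 249 CPM at day 7 and 94.5 to 131 CPM at day 14. Mmp19 ranged over 13.8 to 33.8 CPM in Acomys skin, 100.2 to 139 CPM at day 7 and 65.5 to 86.8 CPM at day 14. All Mmp19 values of wounds were above all those of skin in both species. Mus Mmp19 rose by 2.88 ± 0.25 at day 7 (adjusted p = 7.93e-09) and by 2.00 ± 0.25 at day 14 (adjusted p = 1.45e-06). Acomys Mmp19 rose by 2.40 ± 0.22 at day 7 (adjusted p = 9.52e-09) and by 1.78 ± 0.22 at day 14 (adjusted p = 2.09e-06). Mmp28 (epilysin), an MMP of intact epidermis, was lower in wounds of both species than in skin, with no overlap at either day. Mmp28 was at 11.4, 8.03 and 9.50 CPM in Mus skin, at 2.33, 3.04, 5.14 and 3.16 CPM in the day 7 wounds and at 2.66, 4.74, 2.92 and 3.45 CPM in the day 14 wounds. Mmp28 was at 11.3, 11.5, 8.22 and 6.74 CPM in Acomys skin, at 5.82, 4.90, 5.07 and 5.46 CPM in the day 7 wounds and at 2.63, 4.83, 2.77 and 2.77 CPM in the day 14 wounds. Acomys day 14 replicate 2 was above the other 3 libraries of its group. Mus Mmp28 fell by 1.48 ± 0.26 at day 7 (adjusted p = 6.66e-05) and by 1.48 ± 0.27 at day 14 (adjusted p = 0.000111). Acomys Mmp28 fell by 0.83 ± 0.23 at day 7 (adjusted p = 0.00369) and by 1.55 ± 0.24 at day 14 (adjusted p = 2.6e-05).

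Mmp27, also of the chromosome 9 stretch and an enzyme of little known function, varied widely between libraries. Mmp27 was at 31.6, 69.3 and 57.4 CPM in Mus skin, at 6.17, 7.36, 34.1 and 12.7 CPM in the day 7 wounds and at 21.1, 29.2, 74.3 and 58.3 CPM in the day 14 wounds. Mmp27 was at 48.7, 28.8, 31.5 and 26.5 CPM in Acomys skin, at 35.6, 50.3, 24.8 and 40.3 CPM in the day 7 wounds and at 88.5, 94.0, 66.0 and 67.8 CPM in the day 14 wounds. In Mus the wound libraries of both days overlapped skin. In Acomys all day 14 wounds were above all skin libraries. Mus Mmp27 fell by 1.80 ± 0.49 at day 7 (adjusted p = 0.00422), and its day 14 change was -0.20 ± 0.47 (adjusted p = 0.761, not past the threshold). Acomys Mmp27 rose by 1.22 ± 0.44 at day 14 (adjusted p = 0.0322), and its day 7 change was 0.15 ± 0.44 (adjusted p = 0.778, not past the threshold). For Mmp27, the Acomys change minus the Mus change was 1.95 ± 0.65 (adjusted p = 0.0261) at day 7 and 1.42 ± 0.64 (adjusted p = 0.11, not past the threshold) at day 14. The Mmp27 change was more upward in Acomys at day 7, and at day 14 the difference did not pass. The Mmp27 call in Acomys at day 14 did not hold on omitting replicates 2, 3 and 4 of Acomys day 0 and replicates 1 and 2 of Acomys day 14 (each omitted singly, adjusted p = 0.064 to 0.083). The Mmp27 call for the difference of changes at day 7 did not hold on omitting replicates 2 and 4 of Mus day 0, replicates 1 and 2 of Mus day 7 and replicate 2 of Acomys day 7 (each omitted singly, adjusted p = 0.0513 to 0.071). The Mmp27 value for the difference of changes at day 14 came under the threshold without the 3 muscle-poor Mus libraries together (adjusted p = 0.0378).

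The 4 inhibitors did not move together. Timp1, the inducible inhibitor that blocks most soluble MMPs, rose in both species, and its rise was smaller in Acomys at both days. Timp1 was at 4.34, 4.64 and 9.75 CPM in Mus skin, at 193, 144, 238 and 178 CPM in the day 7 wounds and at 47.1, 71.1, 50.6 and 51.2 CPM in the day 14 wounds. Timp1 was at 33.9, 22.0, 20.2 and 26.1 CPM in Acomys skin, at 193, 236, 331 and 265 CPM in the day 7 wounds and at 48.5, 49.6, 50.3 and 44.2 CPM in the day 14 wounds. All wounds were above all skin libraries in both species, and all Acomys skin libraries were above all Mus skin libraries. Mus day 14 replicate 2 was above the other 3 libraries of its group. Mus Timp1 rose by 4.90 ± 0.29 at day 7 (adjusted p = 3.41e-11) and by 3.12 ± 0.27 at day 14 (adjusted p = 1.57e-08). Acomys Timp1 rose by 3.32 ± 0.23 at day 7 (adjusted p = 9.24e-11) and by 0.91 ± 0.21 at day 14 (adjusted p = 0.00179). For Timp1, the Acomys change minus the Mus change was -1.58 ± 0.34 (adjusted p = 0.000992) at day 7 and -2.21 ± 0.34 (adjusted p = 8.54e-05) at day 14. The Timp1 change was more upward in Mus at both days.

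Timp2, which blocks MMPs and at low amounts takes part in opening Mmp2 together with Mmp14, went in opposite directions at day 7. Timp2 was at 956, 1012 and 908 CPM in Mus skin, at 395, 512, 483 and 385 CPM in the day 7 wounds and at 1264, 1188, 887 and 971 CPM in the day 14 wounds. Timp2 was at 171, 98.2, 125 and 98.4 CPM in Acomys skin, at 268, 261, 261 and 231 CPM in the day 7 wounds and at 308, 274, 241 and 285 CPM in the day 14 wounds. All Mus day 7 wounds were below all Mus skin libraries, while all Acomys wounds were above all Acomys skin libraries. At each day all Acomys libraries were below all Mus libraries. Mus Timp2 fell by 1.11 ± 0.16 at day 7 (adjusted p = 5.93e-06), and its day 14 change was 0.17 ± 0.16 (adjusted p = 0.432, not past the threshold). Acomys Timp2 rose by 1.05 ± 0.15 at day 7 (adjusted p = 4.2e-06) and by 1.17 ± 0.15 at day 14 (adjusted p = 3.66e-06). For Timp2, the Acomys change minus the Mus change was 2.16 ± 0.22 (adjusted p = 2.53e-07) at day 7 and 1.001 ± 0.22 (adjusted p = 0.00232) at day 14. The Timp2 change was more upward in Acomys at both days.

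Timp3, the matrix-bound inhibitor that also blocks ADAMTS proteases, fell at day 7 in both species. Timp3 was at 267, 271 and 242 CPM in Mus skin, at 52.4, 57.6, 88.9 and 75.7 CPM in the day 7 wounds and at 219, 265, 173 and 180.0 CPM in the day 14 wounds. Timp3 was at 609, 514, 555 and 493 CPM in Acomys skin, at 88.1, 68.1, 77.4 and 78.9 CPM in the day 7 wounds and at 225, 184, 218 and 285 CPM in the day 14 wounds. All day 7 wounds were below all skin libraries in both species. At day 14 the Mus wounds overlapped skin and the Acomys wounds did not. Mus Timp3 fell by 1.92 ± 0.17 at day 7 (adjusted p = 7.5e-09), and its day 14 change was -0.31 ± 0.17 (adjusted p = 0.144, not past the threshold). Acomys Timp3 fell by 2.80 ± 0.17 at day 7 (adjusted p = 1.31e-11) and by 1.25 ± 0.16 at day 14 (adjusted p = 2.47e-06). For Timp3, the Acomys change minus the Mus change was -0.88 ± 0.24 (adjusted p = 0.00604) at day 7 and -0.94 ± 0.23 (adjusted p = 0.00543) at day 14. The Timp3 change was more upward in Mus at both days. The Timp3 value in Mus at day 14 came under the threshold on omitting replicate 2 of Mus day 14 (adjusted p = 0.0425).

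Timp4, an inhibitor known from heart and fat, was low throughout and fell at both days in both species. Timp4 was at 2.99, 5.77 and 2.5 CPM in Mus skin, at 0, 0.32, 0.270 and 0.176 CPM in the day 7 wounds and at 1.17, 0.365, 0.324 and 0.795 CPM in the day 14 wounds. Timp4 was at 10.8, 16.4, 9.19 and 8.54 CPM in Acomys skin, at 1.68, 2.45, 1.78 and 1.85 CPM in the day 7 wounds and at 4.59, 8.67, 4.82 and 7.47 CPM in the day 14 wounds. All Mus wounds and all Acomys day 7 wounds were below skin, and the Acomys day 14 wounds overlapped skin. At each day all Acomys libraries were above all Mus libraries. The Mus day 7 value rests on 5 counts over the 4 libraries. Mus Timp4 fell by 4.22 ± 0.55 at day 7 (adjusted p = 1.35e-06) and by 2.46 ± 0.45 at day 14 (adjusted p = 0.000121). Acomys Timp4 fell by 2.53 ± 0.32 at day 7 (adjusted p = 4.99e-07) and by 0.82 ± 0.28 at day 14 (adjusted p = 0.0265). For Timp4, the Acomys change minus the Mus change was 1.69 ± 0.70 (adjusted p = 0.0641, not past the threshold) at day 7 and 1.65 ± 0.54 (adjusted p = 0.0286) at day 14. The Timp4 change was more upward in Acomys at day 14, and at day 7 the difference did not pass. The 3 adipocyte markers (Adipoq, Plin1 and Cidec) had a sum of 239.7 to 318 CPM in Mus skin, 5.76 to 26.4 CPM at day 7 and 0.162 to 27.0 CPM at day 14. The same sum was 382 to 608 CPM in Acomys skin, 1.66 to 8.49 CPM at day 7 and 72.8 to 119 CPM at day 14. In Acomys both the markers and Timp4 were lowest at day 7. In Mus the marker sums of the wound days overlapped. The Timp4 CPM values of day 14 were all above those of day 7, but the counts were not apart. Mus day 7 replicates 2 and 3 and day 14 replicates 2 and 3 held 2 Timp4 counts each. The order of these libraries thus rests on library size alone. The part of adipocytes in the Timp4 values was not tested. The Timp4 call in Acomys at day 14 did not hold on omitting replicate 2 of Acomys day 0 and replicates 1 and 3 of Acomys day 14 (each omitted singly, adjusted p = 0.0858 to 0.124) and in the species' own table (adjusted p = 0.0842). The Timp4 value for the difference of changes at day 7 came under the threshold on omitting replicate 4 of Mus day 0 and replicate 2 of Acomys day 0 (each omitted singly, adjusted p = 0.0307 to 0.0423). The Timp4 call for the difference of changes at day 14 did not hold on omitting replicate 2 of Mus day 0, replicates 2 and 3 of Mus day 14 and replicate 2 of Acomys day 14 (each omitted singly, adjusted p = 0.0578 to 0.13) and without the 3 muscle-poor Mus libraries together (adjusted p = 0.197).

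**Figure D3:**
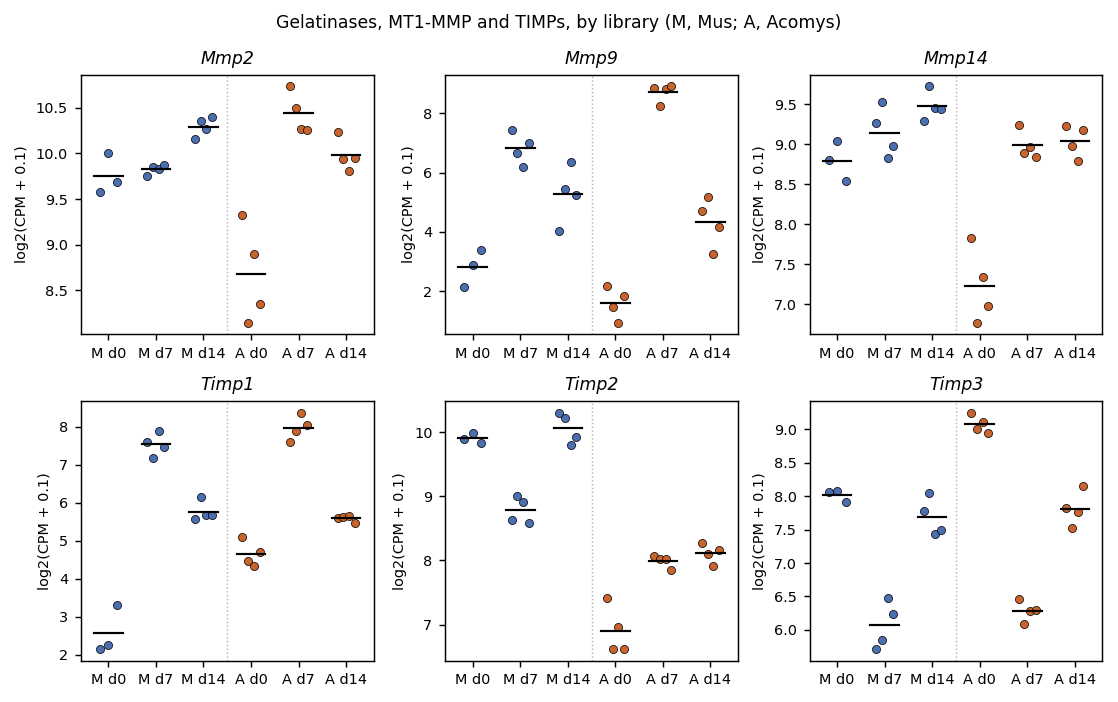
Level of the gelatinases Mmp2 and Mmp9, of Mmp14, and of Timp1, Timp2 and Timp3 in each library, as log2(CPM + 0.1), by species and day. Points are libraries and bars are group means. Acomys Mmp9 at day 7 lies at 307 to 482 CPM, above the Mus wounds, and Timp2 drops in Mus and climbs in Acomys at day 7.

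Counts of a protease were also set against counts of an inhibitor within each library, as a ratio of counts that says nothing of protein amounts. Per count of Timp1, the Mmp9 counts of Mus had a median of 1.05 (1.0 to 1.57) in skin, 0.712 (0.307 to 0.903) at day 7 and 0.674 (0.346 to 1.63) at day 14, with the range over libraries in parentheses. In Acomys the Mmp9 per Timp1 ratio was 0.125 (0.0897 to 0.134) in skin, 1.59 (1.30 to 2.43) at day 7 and 0.467 (0.187 to 0.726) at day 14. The ratio was below its skin value in all Mus day 7 wounds and above it in all Acomys day 7 wounds. Mmp13 per Timp1 was above skin in every wound of both species, with medians of 0.141 in skin, 0.532 at day 7 and 1.86 at day 14 in Mus and of 0.0122, 0.727 and 0.0984 in Acomys. Mmp12 per Timp1 had medians of 1.0, 0.446 and 0.743 in Mus and of 0.743, 0.425 and 18.3 in Acomys, so that Acomys day 14 stood apart from its other groups. Mmp3 per Timp1 in Mus was at 68.0 (32.5 to 79.5) in skin, 1.96 (1.90 to 2.58) at day 7 and 5.98 (2.62 to 7.48) at day 14. The Acomys ratio of the same pair was 0.136 (0.116 to 0.236), 0.555 (0.522 to 0.746) and 0.194 (0.167 to 0.252) in the same order. Mmp2 per Timp2 was highest at day 7 in both species, at 2.03 (1.80 to 2.45) in Mus against 0.907 (0.797 to 1.02) in skin, and at 5.41 (4.73 to 6.36) in Acomys against 3.54 (2.88 to 3.80) in skin. Mmp14 per Timp2 was also above skin in all day 7 wounds, with medians of 0.466 in skin, 1.37 at day 7 and 0.712 at day 14 in Mus and of 1.29, 1.95 and 1.89 in Acomys. These 6 ratios were not tested.

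Among the Adamts genes 13 of 18 rose and 3 fell in Mus at day 7 (27.0% and 26.7% of all genes), and 15 rose and 2 fell at day 14 (21.6% and 22.1% of all genes). In Acomys 12 rose and 3 fell at day 7 (30.4% and 31.4% of all genes), and 15 rose and none fell at day 14 (18.9% and 20.0% of all genes). The 7 proteoglycan-cleaving members (Adamts1, Adamts4, Adamts5, Adamts8, Adamts9, Adamts15 and Adamts20) are known for cutting versican or aggrecan. The difference of changes was negative for 3 of these 7 at day 7 and for 5 at day 14, where 18.7% and 12.0% of all genes were, and positive for 0 and 1, where 17.1% and 13.1% of all genes were. Adamts4 (aggrecanase-1) was near 1 CPM in the skin of both species and rose steeply in both. Adamts4 was at 1.05, 1.505 and 1.0 CPM in Mus skin, at 94.1, 120.3, 76.9 and 79.1 CPM in the day 7 wounds and at 48.3, 98.3, 80.6 and 72.8 CPM in the day 14 wounds. Adamts4 was at 1.25, 0.884, 0.975 and 1.01 CPM in Acomys skin, at 58.8, 42.0, 61.8 and 45.5 CPM in the day 7 wounds and at 27.6, 20.6, 20.2 and 17.5 CPM in the day 14 wounds. All wounds were above all skin libraries, and at both wound days all Acomys wounds were below all Mus wounds. Mus Adamts4 rose by 6.26 ± 0.31 at day 7 (adjusted p = 2.01e-12) and by 5.96 ± 0.31 at day 14 (adjusted p = 8.71e-12). Acomys Adamts4 rose by 5.62 ± 0.27 at day 7 (adjusted p = 8.94e-13) and by 4.35 ± 0.28 at day 14 (adjusted p = 1.49e-10). For Adamts4, the Acomys change minus the Mus change was -0.64 ± 0.48 (adjusted p = 0.315, not past the threshold) at day 7 and -1.61 ± 0.48 (adjusted p = 0.0165) at day 14. The Adamts4 change was more upward in Mus at day 14, and at day 7 the difference did not pass.

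Adamts15 had a larger rise in Mus than in Acomys at both days. Adamts15 was at 14.8, 12.2 and 12.0 CPM in Mus skin, at 136, 56.0, 233 and 204 CPM in the day 7 wounds and at 193, 132, 140.3 and 164 CPM in the day 14 wounds. Adamts15 was at 36.7, 29.7, 29.4 and 29.9 CPM in Acomys skin, at 123, 124, 92.7 and 98.2 CPM in the day 7 wounds and at 80.0, 61.4, 60.2 and 89.2 CPM in the day 14 wounds. All wounds were above all skin libraries in both species, and all Acomys skin libraries were above all Mus skin libraries. At day 14 the order was turned, with all Acomys wounds below all Mus wounds. Mus Adamts15 rose by 3.60 ± 0.35 at day 7 (adjusted p = 3.63e-08) and by 3.60 ± 0.35 at day 14 (adjusted p = 8.16e-08). Acomys Adamts15 rose by 1.80 ± 0.28 at day 7 (adjusted p = 1.37e-05) and by 1.21 ± 0.28 at day 14 (adjusted p = 0.00165). For Adamts15, the Acomys change minus the Mus change was -1.80 ± 0.42 (adjusted p = 0.00252) at day 7 and -2.39 ± 0.43 (adjusted p = 0.00041) at day 14. The Adamts15 change was more upward in Mus at both days.

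Adamts9 also rose more in Mus. Adamts9 was at 15.1, 15.0 and 15.0 CPM in Mus skin, at 80.3, 95.7, 80.0 and 75.7 CPM in the day 7 wounds and at 59.9, 92.3, 105 and 104 CPM in the day 14 wounds. Adamts9 was at 30.1, 23.1, 28.1 and 22.7 CPM in Acomys skin, at 51.8, 44.7, 59.7 and 47.5 CPM in the day 7 wounds and at 89.0, 72.6, 75.5 and 71.8 CPM in the day 14 wounds. In both species the wounds were all above skin. All Acomys day 14 wounds were above all Acomys day 7 wounds. Mus Adamts9 rose by 2.46 ± 0.17 at day 7 (adjusted p = 2.22e-10) and by 2.58 ± 0.17 at day 14 (adjusted p = 2.77e-10). Acomys Adamts9 rose by 0.97 ± 0.15 at day 7 (adjusted p = 5.76e-06) and by 1.57 ± 0.15 at day 14 (adjusted p = 4.5e-08). For Adamts9, the Acomys change minus the Mus change was -1.49 ± 0.22 (adjusted p = 2.06e-05) at day 7 and -1.01 ± 0.22 (adjusted p = 0.00176) at day 14. The Adamts9 change was more upward in Mus at both days.

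Adamts1 and Adamts5 lie close to each other on mouse chromosome 16 (85793827 to 85803113 and 85856173 to 85901828, minus strand, GRCm38). Both rose in Mus at the 2 wound days, and neither passed in Acomys at day 7 or day 14. Adamts1 was at 71.6, 80.2 and 70.0 CPM in Mus skin, at 189, 92.6, 182 and 159 CPM in the day 7 wounds and at 146, 169.6, 126 and 127 CPM in the day 14 wounds. Adamts1 was at 103, 99.0, 148 and 90.6 CPM in Acomys skin, at 153, 142, 146 and 135 CPM in the day 7 wounds and at 112, 90.5, 104 and 97.6 CPM in the day 14 wounds. In Mus all wounds were above all skin libraries, and in Acomys wounds and skin overlapped. Mus Adamts1 rose by 1.07 ± 0.19 at day 7 (adjusted p = 6.03e-05) and by 0.94 ± 0.19 at day 14 (adjusted p = 0.000363). Acomys Adamts1 changes were 0.39 ± 0.17 (adjusted p = 0.0546, not past the threshold) at day 7 and -0.12 ± 0.17 (adjusted p = 0.606, not past the threshold) at day 14. For Adamts1, the Acomys change minus the Mus change was -0.69 ± 0.25 (adjusted p = 0.0383) at day 7 and -1.06 ± 0.25 (adjusted p = 0.00395) at day 14. The Adamts1 change was more upward in Mus at both days. The Adamts1 value in Acomys at day 7 came under the threshold on omitting replicate 3 of Acomys day 0 (adjusted p = 0.00651), in a fit of the compared groups alone (adjusted p = 0.0344), in the species' own table (adjusted p = 0.00294), without structural RNAs (adjusted p = 0.0344) and by the DESeq2 Wald test (adjusted p = 0.0477). The Adamts1 call for the difference of changes at day 7 did not hold on omitting replicates 1 and 4 of Mus day 0, replicates 1, 3 and 4 of Mus day 7, replicate 3 of Acomys day 0 and replicates 2, 3 and 4 of Acomys day 7 (each omitted singly, adjusted p = 0.0533 to 0.0986), in a fit of the compared groups alone (adjusted p = 0.078) and without the 3 muscle-poor Mus libraries together (adjusted p = 0.088).

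Adamts5 was at 110.2, 99.8 and 92.3 CPM in Mus skin, at 217, 99.8, 318 and 259.6 CPM in the day 7 wounds and at 471, 309.7, 303 and 426 CPM in the day 14 wounds. Adamts5 was at 175, 119, 154 and 93.3 CPM in Acomys skin, at 182, 189.6, 94.8 and 136 CPM in the day 7 wounds and at 103, 70.9, 80.6 and 83.1 CPM in the day 14 wounds. Adamts5 (aggrecanase-2) of Mus had all day 14 wounds above all skin libraries, and its day 7 wounds overlapped skin. All Acomys day 14 wounds were below all Mus day 14 wounds. Mus Adamts5 rose by 1.15 ± 0.31 at day 7 (adjusted p = 0.00361) and by 1.91 ± 0.32 at day 14 (adjusted p = 5.85e-05). Acomys Adamts5 changes were 0.15 ± 0.28 (adjusted p = 0.651, not past the threshold) at day 7 and -0.68 ± 0.28 (adjusted p = 0.0591, not past the threshold) at day 14. For Adamts5, the Acomys change minus the Mus change was -0.998 ± 0.41 (adjusted p = 0.0641, not past the threshold) at day 7 and -2.59 ± 0.42 (adjusted p = 0.000162) at day 14. The Adamts5 change was more upward in Mus at day 14, and at day 7 the difference did not pass. The Adamts5 value in Acomys at day 14 came under the threshold on omitting replicate 4 of Acomys day 0 (adjusted p = 0.0319), in a fit of the compared groups alone (adjusted p = 0.0147), in the species' own table (adjusted p = 0.046) and by the DESeq2 Wald test (adjusted p = 0.0343). The Adamts5 value for the difference of changes at day 7 came under the threshold on omitting replicate 2 of Mus day 7, replicate 4 of Acomys day 0 and replicate 2 of Acomys day 7 (each omitted singly, adjusted p = 0.00665 to 0.0492) and by the DESeq2 Wald test (adjusted p = 0.0389).

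Adamts20, known from melanoblast migration in mouse skin, and Adamts8 fell at day 7 in both species. Adamts20 was at 6.59, 6.39 and 5.88 CPM in Mus skin, at 1.23, 2.72, 0.811 and 1.05 CPM in the day 7 wounds and at 4.49, 2.19, 3.24 and 2.52 CPM in the day 14 wounds. Adamts20 was at 8.15, 4.29, 7.80 and 5.395 CPM in Acomys skin, at 1.88, 0.852, 1.42 and 0.877 CPM in the day 7 wounds and at 13.6, 17.7, 18.1 and 17.2 CPM in the day 14 wounds. In Mus all wounds were below all skin libraries. In Acomys all day 7 wounds were below and all day 14 wounds above all skin libraries. Mus Adamts20 fell by 2.12 ± 0.34 at day 7 (adjusted p = 1.63e-05) and by 1.01 ± 0.31 at day 14 (adjusted p = 0.0103). Acomys Adamts20 fell by 2.33 ± 0.30 at day 7 (adjusted p = 7.75e-07) and rose by 1.37 ± 0.25 at day 14 (adjusted p = 0.000143). For Adamts20, the Acomys change minus the Mus change was -0.21 ± 0.46 (adjusted p = 0.764, not past the threshold) at day 7 and 2.38 ± 0.39 (adjusted p = 0.000159) at day 14. The Adamts20 change was more upward in Acomys at day 14, and at day 7 the difference did not pass. The sum of the 4 hair follicle markers (Krt25, Krt71, Krt15 and Lgr5) was 1220.4 to 1638 CPM in Mus skin, 28.7 to 291 CPM at day 7 and 301 to 478 CPM at day 14, and 307 to 952 CPM in Acomys skin, 4.98 to 9.57 CPM at day 7 and 482 to 1211 CPM at day 14. In Mus the 4 markers went both ways, with Krt25 and Krt71 called higher and Krt15 and Lgr5 called lower at day 7, and 2 called higher and 1 lower at day 14. In Acomys all 4 were called lower at day 7 and 1 at day 14, and both the sum and Adamts20 were lowest at day 7. Among all genes 27.0% rose and 26.7% fell in Mus at day 7, and 21.6% and 22.1% at day 14. In Acomys 31.4% and 20.0% of all genes fell at days 7 and 14. The part of hair follicles in the Adamts20 values was not tested. The Adamts20 call in Mus at day 14 did not hold without the 3 muscle-poor Mus libraries together (adjusted p = 0.0694).

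Adamts8 was at 3.59, 3.26 and 3.63 CPM in Mus skin, at 0.686, 0.480, 0.541 and 0.351 CPM in the day 7 wounds and at 1.66, 3.65, 2.27 and 0.530 CPM in the day 14 wounds. Adamts8 was at 4.29, 3.79, 2.79 and 4.38 CPM in Acomys skin, at 0.296, 0.3195, 0.711 and 0.0974 CPM in the day 7 wounds and at 2.53, 1.54, 2.5 and 3.50 CPM in the day 14 wounds. Adamts8 lies close to Adamts15 on chromosome 9 (30942562 to 30963838 and 30899155 to 30922452, GRCm38), yet it fell at day 7 where Adamts15 rose. All day 7 wounds were below all skin libraries in both species, and the day 14 wounds overlapped skin. Mus Adamts8 fell by 2.70 ± 0.48 at day 7 (adjusted p = 6.73e-05), and its day 14 change was -0.83 ± 0.40 (adjusted p = 0.105, not past the threshold). Acomys Adamts8 fell by 3.35 ± 0.44 at day 7 (adjusted p = 1.06e-06), and its day 14 change was -0.59 ± 0.34 (adjusted p = 0.181, not past the threshold). The differences between the species did not pass (adjusted p = 0.514 at day 7 and 0.795 at day 14). The adipocyte markers given with Timp4 had the same low at day 7 in Acomys. In Mus 3 of 3 of these markers were called lower at both day 7 and day 14, against 26.7% and 22.1% of all genes. Mus Adamts8 did not pass at day 14. The part of adipocytes in the Adamts8 values was not tested. The Adamts8 value in Mus at day 14 came under the threshold on omitting replicate 2 of Mus day 14 (adjusted p = 0.0189) and without the 3 muscle-poor Mus libraries together (adjusted p = 0.00865).

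**Figure D4:**
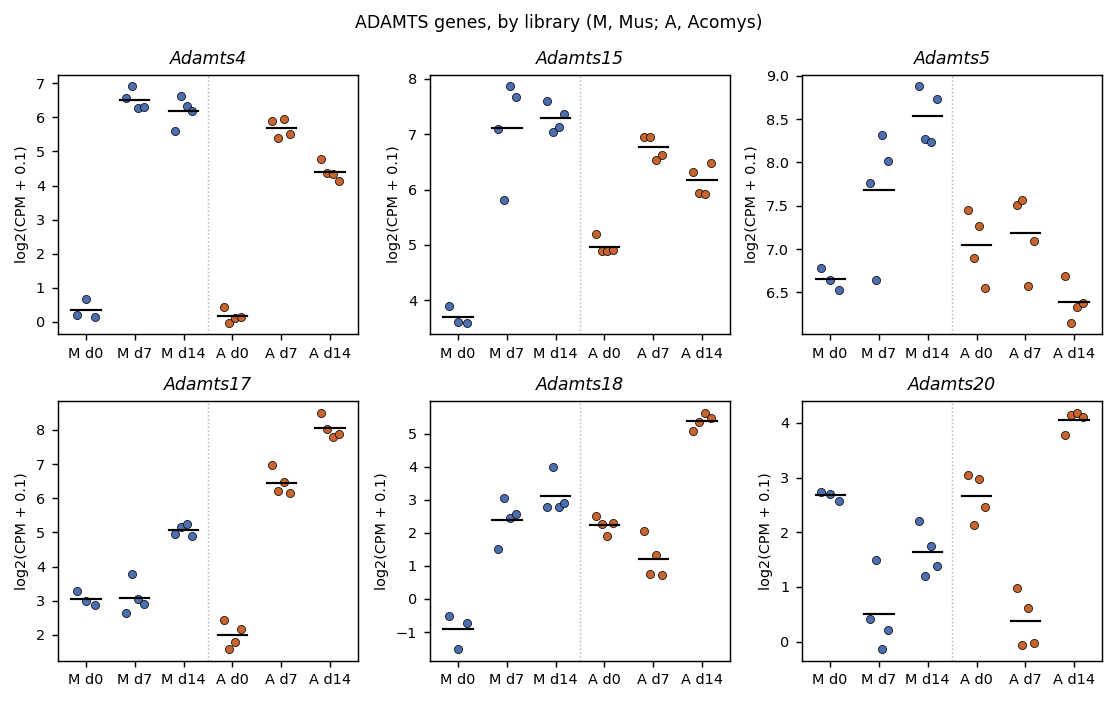
Level of Adamts members in each library, as log2(CPM + 0.1), by species and day; points are libraries and bars are group means. Adamts17 climbs to 90.4 CPM (day 7 mean) and 271 CPM (day 14 mean) in Acomys wounds, where the Mus means are 8.82 and 33.6 CPM.

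The procollagen N-propeptidases cut the amino end off procollagens. Adamts2, which acts on type I procollagen, went in opposite directions in the 2 species. Adamts2 was at 1208, 1294 and 945 CPM in Mus skin, at 385, 491, 482 and 442 CPM in the day 7 wounds and at 650.4, 765, 680.0 and 616 CPM in the day 14 wounds. Adamts2 was at 206, 85.3, 149.6 and 85.7 CPM in Acomys skin, at 247, 204, 191 and 175 CPM in the day 7 wounds and at 252, 200.1, 170.0 and 244 CPM in the day 14 wounds. All Mus wounds were below all Mus skin libraries, while Acomys wounds and skin overlapped. At each day all Acomys libraries were below all Mus libraries. Mus Adamts2 fell by 1.35 ± 0.23 at day 7 (adjusted p = 3.38e-05) and by 0.76 ± 0.23 at day 14 (adjusted p = 0.00923). Acomys Adamts2 rose by 0.64 ± 0.21 at day 7 (adjusted p = 0.0137) and by 0.72 ± 0.21 at day 14 (adjusted p = 0.0104). For Adamts2, the Acomys change minus the Mus change was 1.99 ± 0.31 (adjusted p = 4.44e-05) at day 7 and 1.48 ± 0.31 (adjusted p = 0.00146) at day 14. The Adamts2 change was more upward in Acomys at both days. The Adamts2 call in Acomys at day 7 did not hold on omitting replicates 2 and 4 of Acomys day 0 (each omitted singly, adjusted p = 0.0559) and in a fit of the compared groups alone (adjusted p = 0.0591). The Adamts2 call in Acomys at day 14 did not hold in a fit of the compared groups alone (adjusted p = 0.0565).

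Adamts14 and Adamts3, the other 2 enzymes of this kind, rose in both species. Adamts14 was at 32.5, 29.0 and 28.6 CPM in Mus skin, at 62.8, 76.3, 93.7 and 80.3 CPM in the day 7 wounds and at 72.2, 112, 83.9 and 51.3 CPM in the day 14 wounds. Adamts14 was at 10.6, 6.94, 13.2 and 5.395 CPM in Acomys skin, at 87.3, 64.9, 75.2 and 56.8 CPM in the day 7 wounds and at 60.4, 38.3, 37.4 and 46.2 CPM in the day 14 wounds. Adamts14 was above skin in every wound of both species, and its day 7 wounds overlapped between the species. Mus Adamts14 rose by 1.38 ± 0.26 at day 7 (adjusted p = 0.000135) and by 1.41 ± 0.26 at day 14 (adjusted p = 0.000175). Acomys Adamts14 rose by 2.98 ± 0.26 at day 7 (adjusted p = 3.3e-09) and by 2.34 ± 0.26 at day 14 (adjusted p = 4.44e-07). For Adamts14, the Acomys change minus the Mus change was 1.60 ± 0.35 (adjusted p = 0.00147) at day 7 and 0.93 ± 0.36 (adjusted p = 0.0603, not past the threshold) at day 14. The Adamts14 change was more upward in Acomys at day 7, and at day 14 the difference did not pass. Adamts3 is also known for processing the lymphatic growth factor Vegfc. Adamts3 ranged over 1.35 to 1.88 CPM in Mus skin, 8.23 to 19.9 CPM at day 7 and 3.57 to 19.2 CPM at day 14. Adamts3 ranged over 3.79 to 5.33 CPM in Acomys skin, 25.5 to 43.7 CPM at day 7 and 8.02 to 13.9 CPM at day 14. All Adamts3 values of wounds were above all those of skin in both species, and Mus day 7 replicate 4 was the highest of its group. Mus Adamts3 rose by 2.89 ± 0.52 at day 7 (adjusted p = 8.66e-05) and by 2.81 ± 0.52 at day 14 (adjusted p = 0.000192). Acomys Adamts3 rose by 2.86 ± 0.39 at day 7 (adjusted p = 2.02e-06) and by 1.26 ± 0.39 at day 14 (adjusted p = 0.0137). The Adamts14 value for the difference of changes at day 14 came under the threshold on omitting replicate 2 of Mus day 14 and replicate 3 of Acomys day 0 (each omitted singly, adjusted p = 0.0205 to 0.0215), without the 3 muscle-poor Mus libraries together (adjusted p = 0.012) and by the DESeq2 Wald test (adjusted p = 0.0404).

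Adamts7 and Adamts12 cut cartilage oligomeric matrix protein (Comp). Both rose at the 2 wound days in both species. Adamts7 ranged over 5.75 to 6.74 CPM in Mus skin, 32.8 to 43.8 CPM at day 7 and 27.97 to 48.5 CPM at day 14. Adamts7 ranged over 2.72 to 3.76 CPM in Acomys skin, 15.6 to 26.4 CPM at day 7 and 13.6 to 19.3 CPM at day 14. Acomys libraries were below Mus libraries at each day for both genes. Mus Adamts7 rose by 2.58 ± 0.21 at day 7 (adjusted p = 2.56e-09) and by 2.46 ± 0.21 at day 14 (adjusted p = 1.08e-08). Acomys Adamts7 rose by 2.79 ± 0.21 at day 7 (adjusted p = 2.19e-10) and by 2.36 ± 0.21 at day 14 (adjusted p = 2.08e-08). Adamts12 was at 77.7, 79.5 and 84.1 CPM in Mus skin, at 173, 237, 206 and 195 CPM in the day 7 wounds and at 227, 241, 235 and 279 CPM in the day 14 wounds. Adamts12 was at 56.5, 29.8, 44.1 and 39.5 CPM in Acomys skin, at 76.0, 67.6, 71.8 and 62.7 CPM in the day 7 wounds and at 69.0, 49.7, 52.6 and 64.6 CPM in the day 14 wounds. All Mus wounds were above all Mus skin libraries for Adamts12, and the Acomys day 14 wounds overlapped Acomys skin. Mus Adamts12 rose by 1.33 ± 0.16 at day 7 (adjusted p = 4.43e-07) and by 1.61 ± 0.16 at day 14 (adjusted p = 8.24e-08). Acomys Adamts12 rose by 0.71 ± 0.15 at day 7 (adjusted p = 0.000245) and by 0.47 ± 0.15 at day 14 (adjusted p = 0.0134). For Adamts12, the Acomys change minus the Mus change was -0.62 ± 0.21 (adjusted p = 0.0269) at day 7 and -1.14 ± 0.21 (adjusted p = 0.000571) at day 14. The Adamts12 change was more upward in Mus at both days. The Adamts12 call in Acomys at day 14 did not hold on omitting replicate 2 of Acomys day 0 and replicate 1 of Acomys day 14 (each omitted singly, adjusted p = 0.0547 to 0.0562) and in a fit of the compared groups alone (adjusted p = 0.0541). The Adamts12 call for the difference of changes at day 7 did not hold on omitting replicates 1 and 2 of Mus day 0, replicate 2 of Mus day 7, replicate 1 of Acomys day 0 and replicate 4 of Acomys day 7 (each omitted singly, adjusted p = 0.0534 to 0.0711), in a fit of the compared groups alone (adjusted p = 0.0511) and without the 3 muscle-poor Mus libraries together (adjusted p = 0.0618).

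The other 6 ADAMTS proteases have few known substrates. Adamts17, tied to fibrillin-rich matrix, had the largest positive difference of change of the Adamts genes at both days. Adamts17 was at 9.58, 7.77 and 7.25 CPM in Mus skin, at 6.17, 13.6, 8.11 and 7.38 CPM in the day 7 wounds and at 30.6, 35.9, 38.1 and 29.6 CPM in the day 14 wounds. Adamts17 was at 5.33, 2.90, 3.34 and 4.38 CPM in Acomys skin, at 126, 74.4, 89.3 and 71.5 CPM in the day 7 wounds and at 364, 260.1, 224 and 238 CPM in the day 14 wounds. All Acomys wounds were above all Acomys skin libraries, although Acomys skin was below Mus skin in every library. In Mus the day 7 wounds overlapped skin and all day 14 wounds were above it. Mus Adamts17 rose by 2.04 ± 0.26 at day 14 (adjusted p = 2.34e-06), and its day 7 change was 0.10 ± 0.27 (adjusted p = 0.78, not past the threshold). Acomys Adamts17 rose by 4.48 ± 0.25 at day 7 (adjusted p = 8.71e-12) and by 6.07 ± 0.27 at day 14 (adjusted p = 4.87e-12). For Adamts17, the Acomys change minus the Mus change was 4.38 ± 0.37 (adjusted p = 2.42e-08) at day 7 and 4.03 ± 0.36 (adjusted p = 1.43e-07) at day 14. The Adamts17 change was more upward in Acomys at both days. The gap between the species in Adamts17 was -1.01 ± 0.29 (adjusted p = 0.00415) in skin, 3.36 ± 0.24 (adjusted p = 8.51e-11) at day 7 and 3.02 ± 0.22 (adjusted p = 1.54e-10) at day 14.

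Adamts18 showed the reverse at day 7, with a rise in Mus from near 0 and a drop in Acomys. Adamts18 was at 0.599, 0.251 and 0.500 CPM in Mus skin, at 2.74, 8.16, 5.41 and 5.80 CPM in the day 7 wounds and at 6.82, 15.9, 6.81 and 7.42 CPM in the day 14 wounds. Adamts18 was at 5.65, 4.67, 3.62 and 4.83 CPM in Acomys skin, at 4.05, 1.60, 2.40 and 1.56 CPM in the day 7 wounds and at 33.5, 41.1, 49.6 and 44.5 CPM in the day 14 wounds. All Mus wounds were above all Mus skin libraries, whose 3 libraries held 10 counts in all. In Acomys the day 7 wounds overlapped skin and all day 14 wounds were above it. Mus day 14 replicate 2 was above the other 3 libraries of its group. Mus Adamts18 rose by 3.59 ± 0.53 at day 7 (adjusted p = 6.82e-06) and by 4.32 ± 0.51 at day 14 (adjusted p = 6.12e-07). Acomys Adamts18 fell by 0.97 ± 0.34 at day 7 (adjusted p = 0.0176) and rose by 3.16 ± 0.30 at day 14 (adjusted p = 6.61e-08). For Adamts18, the Acomys change minus the Mus change was -4.55 ± 0.63 (adjusted p = 1.14e-05) at day 7 and -1.17 ± 0.65 (adjusted p = 0.198, not past the threshold) at day 14. The Adamts18 change was more upward in Mus at day 7, and at day 14 the difference did not pass. From day 7 to day 14 Acomys Adamts18 rose by 4.12 ± 0.32 (adjusted p = 3.11e-09). The Adamts18 call in Acomys at day 7 did not hold on omitting replicate 1 of Acomys day 0 and replicates 2 and 4 of Acomys day 7 (each omitted singly, adjusted p = 0.0531 to 0.0602).

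Adamts16 was at a trace in the skin of both species, with 8 counts over the group in each, and rose steeply in both species. Adamts16 was at 0.299, 0.502 and 0.250 CPM in Mus skin, at 15.0, 32.6, 26.8 and 33.04 CPM in the day 7 wounds and at 35.8, 46.3, 37.8 and 43.9 CPM in the day 14 wounds. Adamts16 was at 0.105, 0.126, 0.279 and 0.450 CPM in Acomys skin, at 20.7, 18.5, 27.5 and 18.7 CPM in the day 7 wounds and at 12.5, 8.67, 10.54 and 8.85 CPM in the day 14 wounds. All wounds were above all skin libraries in both species, and all Acomys day 14 wounds were below all Mus day 14 wounds. Mus Adamts16 rose by 6.18 ± 0.37 at day 7 (adjusted p = 3.43e-11) and by 6.80 ± 0.37 at day 14 (adjusted p = 1.46e-11). Acomys Adamts16 rose by 6.399 ± 0.35 at day 7 (adjusted p = 3.42e-12) and by 5.33 ± 0.37 at day 14 (adjusted p = 5.23e-10). The Acomys minus Mus difference did not pass for Adamts16 at day 7 or day 14 (adjusted p = 0.848 and 0.187). Adamts6, Adamts10 and Adamts19 had positive values at both days in both species. Adamts6 ranged over 8.53 to 8.88 CPM in Mus skin, 15.6 to 39.4 CPM at day 7 and 14.12 to 26.1 CPM at day 14. Adamts6 ranged over 3.91 to 7.42 CPM in Acomys skin, 26.8 to 33.7 CPM at day 7 and 12.5 to 18.8 CPM at day 14. All Adamts6 values of wounds were above all those of skin in both species. Mus Adamts6 rose by 1.52 ± 0.26 at day 7 (adjusted p = 4.82e-05) and by 1.21 ± 0.26 at day 14 (adjusted p = 0.000771). Acomys Adamts6 rose by 2.32 ± 0.24 at day 7 (adjusted p = 3.99e-08) and by 1.43 ± 0.25 at day 14 (adjusted p = 7.88e-05). Adamts19 was low, below 1 CPM on average in the skin of both species. Mus Adamts19 rose by 1.77 ± 0.67 at day 7 (adjusted p = 0.0319) and by 3.79 ± 0.62 at day 14 (adjusted p = 4.6e-05). Acomys Adamts19 rose by 3.07 ± 0.65 at day 7 (adjusted p = 0.000323) and by 3.78 ± 0.62 at day 14 (adjusted p = 5.65e-05). Adamts10, which binds fibrillin, moved least of these 3. Mus Adamts10 rose by 0.46 ± 0.16 at day 14 (adjusted p = 0.0234), and its day 7 change was 0.04 ± 0.16 (adjusted p = 0.864, not past the threshold). Acomys Adamts10 rose by 0.79 ± 0.15 at day 14 (adjusted p = 0.00022), and its day 7 change was 0.29 ± 0.15 (adjusted p = 0.1, not past the threshold). For the difference of changes, adjusted p at day 7 and day 14 was 0.0804 and 0.707 for Adamts6, 0.328 and 1 for Adamts19 and 0.392 and 0.276 for Adamts10, none of them past the threshold. The Adamts19 call in Mus at day 7 did not hold on omitting replicates 1 and 2 of Mus day 0 and replicates 3 and 4 of Mus day 7 (each omitted singly, adjusted p = 0.0756 to 0.123), in the species' own table (adjusted p = 0.0599) and without the 3 muscle-poor Mus libraries together (adjusted p = 0.125). The Adamts10 call in Mus at day 14 did not hold on omitting replicates 1 and 2 of Mus day 0 and replicate 2 of Mus day 14 (each omitted singly, adjusted p = 0.0522 to 0.127) and without the 3 muscle-poor Mus libraries together (adjusted p = 0.0666). The Adamts6 value for the difference of changes at day 7 came under the threshold on omitting replicate 2 of Mus day 7 (adjusted p = 0.00738).

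Between the 2 wound days the species took different courses. In Acomys 13 members rose, 18 fell and 8 did not pass, against 22.6% higher and 21.8% lower among all genes (44.4% called). In Mus 12 rose, 6 fell and 21 did not pass, against 9.60% and 12.5% (22.1% called). Without Mus day 7 replicate 1 the Mus count was 10 members, 6 higher and 4 lower. Without the 3 muscle-poor Mus libraries it was 14 members, 7 higher and 7 lower, with 11 of the 18 calls kept. Only 8 of the 18 Mus calls held under every alternative, so the larger number of rises in Mus was not stable. The difference of this change between the species was positive for 5 members and negative for 9, and 25 did not pass, against 12.7% and 9.49% of all genes (22.2% called). The 5 positive ones were Mmp12, Mmp15, Mmp17, Adamts18 and Adamts20. The 9 negative ones were Mmp2, Mmp3, Mmp9, Mmp13, Timp2, Adamts3, Adamts4, Adamts5 and Adamts16. Collagenase-3, stromelysin-1 and both gelatinases were thus among the genes that came down more, or rose less, in Acomys. The Adamts3 call in this difference had adjusted p = 0.0404. The Adamts3 call for the species difference in the change from day 7 to day 14 did not hold on omitting replicates 1, 2 and 3 of Mus day 7, replicates 1 and 2 of Mus day 14, replicates 1, 2 and 3 of Acomys day 7 and replicates 2, 3 and 4 of Acomys day 14 (each omitted singly, adjusted p = 0.0527 to 0.122) and in a fit of the compared groups alone (adjusted p = 0.084). The Adamts4 call for the species difference in the change from day 7 to day 14 did not hold without the 3 muscle-poor Mus libraries together (adjusted p = 0.124). That Adamts4 value for the species difference in the change from day 7 to day 14 was -0.62 without the 3 muscle-poor Mus libraries together.

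Levels were also compared between the species at each day, where a fixed factor of the gene does not cancel. In skin 13 members were higher and 11 lower in Acomys, against 34.5% and 31.2% of all genes (65.7% called). At day 7 the counts were 10 and 11, against 35.9% and 34.9% (70.9% called), and at day 14 they were 9 and 18, against 38.1% and 34.6% (72.7% called). The members called were a smaller share than that of all genes in each of these 6 counts, except that 18 of 39 is a larger share than 34.6% at day 14. At day 14, 11 of 18 Adamts genes were lower and 3 higher in Acomys. Summed over the 17 Mmp genes of the shared table, Mus held 1848 ± 202 CPM in skin (SD, n = 3), 2555 ± 142 CPM at day 7 and 2881 ± 312 CPM at day 14 (SD, n = 4 each). The Acomys sums were 820.1 ± 214 CPM, 3209 ± 419 CPM and 3061 ± 605 CPM (SD, n = 4 each), so that all Acomys libraries were below all Mus libraries in skin and above them at day 7, and the day 14 wounds overlapped. The Timp sums were 1229 ± 65.3, 700.9 ± 80.7 and 1342 ± 218 CPM in Mus skin, day 7 and day 14, and 702.5 ± 88.2, 591 ± 54.4 and 559 ± 53.6 CPM in Acomys (SD, n as for the Mmp sums). Sums of counts are dominated by the most counted gene, Mmp2 in every Mmp sum at 33.2% to 52.7%. In the Mus Timp sums it was Timp2, at 78.0% in skin, 63.3% at day 7 and 80.3% at day 14. In the Acomys Timp sums it was Timp3 in skin (77.3%), Timp1 at day 7 (43.3%) and Timp2 at day 14 (49.5%).

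**Figure D5:**
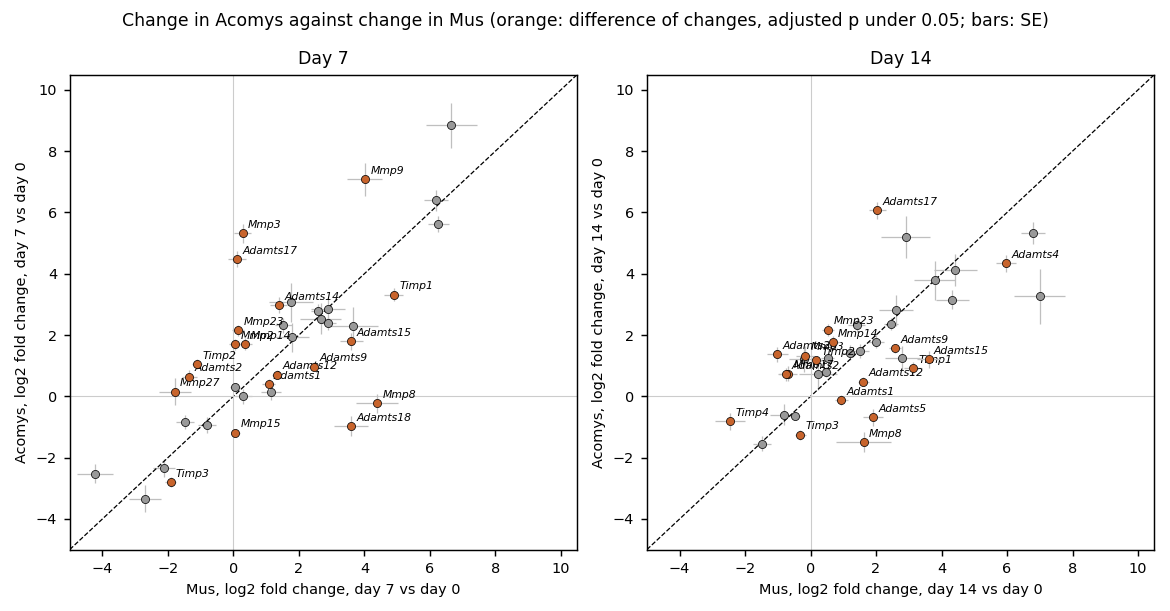
Change of each member in Mus (x axis) against its change in Acomys (y axis), as log2 fold change from skin, at day 7 and day 14, with colours for members that pass the test of the difference; Mmp10 is left out because Mus skin has no count. Mmp3 and Adamts17 lie above the diagonal and Mmp8 and Adamts18 below it at day 7, with differences of 5.04, 4.38, -4.62 and -4.55.

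Genes that work with these proteases were counted over lists set by function. Of 19 regulators known to act on Mmp promoters (AP-1 and Ets factors, Nfkb1, Rela, Runx2 and inflammatory cytokines), 16 rose and 0 fell in Mus at day 7, and 11 rose and 0 fell at day 14. In Acomys 12 rose and 1 fell at day 7, and 3 rose and 1 fell at day 14. The shares of all genes that rose were 27.0% and 21.6% in Mus and 30.4% and 18.9% in Acomys, and those that fell were 26.7% and 22.1% in Mus and 31.4% and 20.0% in Acomys; the day 7 shares apply to each of the lists that follow. By either direction 53.7% of all genes were called in Mus and 61.8% in Acomys at day 7, so that a list with 4 of 7 genes called lies near the background. The difference of changes was negative for 9 of the 19 regulators at day 7 and for 8 at day 14 (18.7% and 12.0% of all genes), and positive for 1 at each (17.1% and 13.1%). The cytokine Tnf rose by 5.07 ± 0.44 in Mus at day 7 (adjusted p = 7.09e-09), and its difference was -4.22 ± 0.60 (adjusted p = 1.74e-05). The cytokine Il1b rose in both species at day 7, by 8.80 ± 1.05 in Mus (adjusted p = 1.08e-06) and by 7.47 ± 0.89 in Acomys (adjusted p = 6.53e-07). In the plasminogen system, whose plasmin opens MMP precursors, 5 of 7 genes rose and 0 fell in Mus at day 7, and 4 rose and 1 fell in Acomys. Plat, a plasminogen activator, rose by 2.61 ± 0.17 in Mus (adjusted p = 7.21e-11) and by 4.25 ± 0.16 in Acomys (adjusted p = 1.27e-13) at day 7.

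Among 12 cathepsins and cystatins 8 rose and 3 fell in Mus at day 7, and 9 rose and 1 fell in Acomys. Ctsk, a lysosomal collagenase, fell in Mus by 1.84 ± 0.20 at day 7 (adjusted p = 8.66e-08) and rose in Acomys by 3.05 ± 0.20 (adjusted p = 3.6e-11), a difference of 4.89 ± 0.28 (adjusted p = 7.45e-11). The difference for Ctsk at day 14 was 3.62 ± 0.27 (adjusted p = 2.7e-08). Of 11 ADAM proteases 7 rose and 1 fell in Mus at day 7, and 8 rose and 3 fell in Acomys. Adam12 rose in both species at day 7, by 4.93 ± 0.32 in Mus (adjusted p = 9.9e-11) and by 3.24 ± 0.26 in Acomys (adjusted p = 9.72e-10). Of 13 activators, other inhibitors and clearance receptors of MMPs, 7 rose and 3 fell in Mus at day 7, and 7 rose and 2 fell in Acomys. Pcsk5, a proprotein convertase, rose at day 7 by 3.20 ± 0.29 in Mus (adjusted p = 1.23e-08) and by 3.44 ± 0.26 in Acomys (adjusted p = 4.76e-10). Pcolce2, which enhances the trimming of the other procollagen end, fell by 5.02 ± 0.39 in Mus (adjusted p = 2.53e-09), and its difference was 5.003 ± 0.49 (adjusted p = 2.53e-07). Among the 7 measured genes of a list of proteoglycan and other substrates 3 rose and 1 fell in Mus at day 7, and 5 rose and 1 fell in Acomys. The 1 that fell in Acomys was Comp, which is not a proteoglycan. Versican (Vcan), a substrate of the proteoglycan-cleaving ADAMTS enzymes, rose by 2.39 ± 0.26 in Mus (adjusted p = 9.35e-08) and by 3.59 ± 0.24 in Acomys (adjusted p = 6.73e-11). Comp, the substrate of Adamts7 and Adamts12, fell by 4.68 ± 0.86 in Acomys (adjusted p = 7.72e-05), with a difference of -5.25 ± 1.09 (adjusted p = 0.000805).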

How the data were processed

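Per the submitters' processing notes, reads were checked with FastQC 0.11.4, trimmed with Trimmomatic 0.32 and quantified with RSEM 1.2.28 and Bowtie2, and the mouse build named is mm9. The tables of each species hold expected counts deposited by the authors, and the table shared by both species holds whole counts deposited by the authors, whose making is not given in the sources used here; every gene in it totals at least 110 counts. For each member that table held 44.0% to 86.0% of the Acomys and 55.0% to 79.6% of the Mus counts of the species' own table.

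Spike-in features, which took 0.679% to 1.964% of a library, did not enter the library sizes or the tests. All 14514 remaining features passed edgeR's filter by group. The 6 groups were fitted together with edgeR 4.0.16 (R 4.3.3): TMM scaling, robust quasi-likelihood F-tests, two-sided, Benjamini-Hochberg adjustment over all features, threshold 0.05. The procedure was also run on simulated counts in which few genes changed, unlike these data, and no result here rests on that run. The standard error is the absolute log2 fold change divided by the square root of F. Expected counts were rounded, and were used for Mmp24 and for the alternative with the species' tables. No 2 libraries held identical values.

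Alternatives were RLE size factors, no filter, DESeq2 1.42.0, a fit of the compared groups only, the replicate number as a block, the species' tables, structural RNAs left out, the 3 muscle-poor libraries left out, and each library left out in turn. The members, the gene lists and the alternatives were chosen with earlier results of these data known. Values in every library are printed for members that passed for a difference of changes at day 7 or 14, and for the 4 that rose and the 4 that fell most against skin. Genes outside the members come from lists by function, up to 4 per list and comparison.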

Additional observations from a re-analysis of the deposited data

Results flagged for a closer look

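In 9 of 197 groups of 4 libraries, 1 library stood apart from the other 3 by more of the group's range than Dixon's 95% critical value of 0.829; chance gives such a library in about 1 of 20 groups. Mmp8 stood highest in Acomys day 14 replicate 4, at 29.0 CPM, where the other 3 libraries were at 19.3 to 20.1 CPM. Mmp9 stood lowest in Acomys day 7 replicate 2, at 307 CPM, where the other 3 libraries were at 453 to 482 CPM. Mmp17 stood highest in Mus day 7 replicate 2, at 4.16 CPM, where the other 3 libraries were at 2.81 to 2.88 CPM. Mmp28 stood highest in Acomys day 14 replicate 2, at 4.83 CPM, where the other 3 libraries were at 2.63 to 2.77 CPM. Timp1 stood highest in Mus day 14 replicate 2, at 71.1 CPM, where the other 3 libraries were at 47.1 to 51.2 CPM. Adamts15 stood highest in Acomys day 0 replicate 1, at 36.7 CPM, where the other 3 libraries were at 29.4 to 29.9 CPM. Adamts3 stood highest in Mus day 7 replicate 4, at 19.9 CPM, where the other 3 libraries were at 8.23 to 10.001 CPM. Adamts7 stood highest in Acomys day 0 replicate 3, at 3.76 CPM, where the other 3 libraries were at 2.72 to 2.81 CPM. Adamts18 stood highest in Mus day 14 replicate 2, at 15.9 CPM, where the other 3 libraries were at 6.81 to 7.42 CPM.

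The change after wounding differed between the species, by the edgeR test of the Acomys change minus the Mus change, as follows (log2 values; standard errors and adjusted p stand with each gene). At day 7 and day 14 the difference was 5.04 and 1.501 for Mmp3, 1.34 and 1.09 for Mmp14, 2.01 and 1.64 for Mmp23, 2.16 and 1.001 for Timp2, 1.99 and 1.48 for Adamts2 and 4.38 and 4.03 for Adamts17. It was negative at both days, at -4.62 and -3.12 for Mmp8, -1.58 and -2.21 for Timp1, -0.88 and -0.94 for Timp3, -0.69 and -1.06 for Adamts1, -1.49 and -1.01 for Adamts9, -1.80 and -2.39 for Adamts15 and -0.62 and -1.14 for Adamts12. For Mmp10 the adjusted p of the difference was 0.00361 at day 7 and 0.000679 at day 14, and no fold is given because Mus skin had no count. At day 7 alone it passed, at 1.64 for Mmp2, 3.06 for Mmp9, -1.24 for Mmp15, 1.95 for Mmp27, 1.60 for Adamts14 and -4.55 for Adamts18. At day 14 alone it passed, at 1.43 for Mmp17, 1.65 for Timp4, -1.61 for Adamts4, -2.59 for Adamts5 and 2.38 for Adamts20. For the interval from day 7 to day 14 it was -5.92 for Mmp13, -0.93 for Mmp2, -2.87 for Mmp9, -3.54 for Mmp3, 3.65 for Mmp12, 1.06 for Mmp15, 1.58 for Mmp17, -1.16 for Timp2, -0.97 for Adamts4, -1.59 for Adamts5, 2.60 for Adamts20, -1.51 for Adamts3, -1.69 for Adamts16 and 3.38 for Adamts18. Leaving out 1 library or another alternative ended some of these calls, as stated beside each gene and, for the replicate block, with the dependence on the processing.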

How the results depend on the processing

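Over the 12 comparisons there were 468 results for single members, of which 304 were called. Under the alternatives 7712 further values were computed: 7370 stayed on their side of the threshold, 237 lost a call and 105 gained one. None of the called values changed sign, and 147 values that were called neither before nor after did. Of the 304 calls, 248 held under every alternative run. No filter on low counts gave the same result as the filter, since all features passed it. The number of members called moved by more than 1.5 times in 1 case, between the Mus wound days without Mus day 7 replicate 1 (10 against 18); the cause was not tested. With 1 library left out, the members called against skin ranged over 29 to 32 and 28 to 31 in Mus and 32 to 34 and 30 to 34 in Acomys at days 7 and 14. Between the wound days they ranged over 10 to 16 in Mus and 25 to 30 in Acomys. Between the species they ranged over 22 to 24 in skin, 20 to 23 at day 7 and 23 to 26 at day 14, and for the differences of changes over 18 to 21, 18 to 20 and 13 to 16. Replicate numbers were not taken to pair the samples, since in the shared table the correlations of same-numbered deviations ranged from -0.0297 to 0.583 in Mus and from -0.16 to 0.352 in Acomys. In the Mus table they were 0.132 to 0.16 between day 0 and day 7 and 0.113 to 0.21 between day 0 and day 14, above 0.1 in all 3 pairs of each, and 0.00381 to 0.6 between the wound days. With the replicate block 31, 32 and 21 members were called in Mus (day 7, day 14, day 14 against day 7), 33, 34 and 32 in Acomys, and 20, 22 and 15 for the differences. The replicate block ended 4 calls, those of Adamts19 in Mus at day 7 (adjusted p = 0.0647), Mmp17 in Mus at day 14 (0.0613), Adamts1 for the day 7 difference (0.0755) and Adamts3 for the day 14 against day 7 difference (0.0592). It added 12 calls, 3 of them of Mmp27. Mmp24, from the Mus table, was not refitted under the alternatives. Genes with few counts, such as Mmp10, Adamts16, Adamts18 and Timp4, are limited by depth.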

Other observations

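A few family genes outside the 40 also had counts. Mmp1b had no count in Mus skin in the species' own table. It was at 1.91 ± 0.341 CPM at day 7 (18 to 24 counts per library) and at 0.410 ± 0.256 CPM at day 14 (1 to 6 counts), as mean and SD with n = 4. Adamts13, the protease that cuts von Willebrand factor, was at 20.8 ± 5.67 CPM in Mus skin (SD, n = 3) and at 16.3 ± 3.64 and 16.3 ± 4.05 CPM at days 7 and 14 (SD, n = 4 each).

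Papln, which encodes a secreted matrix protein related to ADAMTS proteases, had an Acomys minus Mus difference of change of 2.40 ± 0.35 at day 7 (edgeR, adjusted p = 1.69e-05) and of 0.74 ± 0.34 at day 14, which did not pass (adjusted p = 0.119). Adamtsl2, which encodes an ADAMTS-like protein without a protease domain, had the opposite timing, with -0.14 ± 0.55 at day 7 (adjusted p = 0.888, not past the threshold) and 2.55 ± 0.57 at day 14 (adjusted p = 0.00243).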
